A study of Mus musculus with 15 samples.

Results

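The livers of 5 mice that ate a steatohepatitis diet and received vehicle injections (Vehicle) were compared with the livers of 4 mice on standard chow (Chow), over every expressed gene. These are 9 of the 15 samples described and 9 of the 14 with counts here. Chow replicate 5 was not analysed here, and the 5 libraries of mice given SR9009 entered only the estimate of spread. All were male C57BL/6J mice, an inbred laboratory strain, 8 weeks old at the start. The diet (CDA-HFD), eaten for 18 weeks, was rich in fat, lacked choline and had an adapted amino acid content. For the last 6 of those weeks the Vehicle mice had daily intraperitoneal injections of saline with 15% Kolliphor ELP, a castor oil surfactant. The study arms held 15 Vehicle and 10 Chow mice, and each library came from a separate mouse. The labels do not say whether the Chow mice were injected, so that diet and injections cannot be told apart, and the hour of collection is not in them.

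Choline is needed to build phosphatidylcholine, the lipid that coats the lipoprotein particles in which hepatocytes export fat, and a liver short of choline stores triglyceride. Hepatocytes make most plasma proteins, bile acids and urea and break down drugs and amino acids. In steatohepatitis macrophages gather around fat-laden hepatocytes, and stellate cells, the vitamin A storing cells beside the sinusoids, become myofibroblasts that lay down collagen.

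Libraries held 29950509 to 45542335 counts. Levels are given as CPM, counts scaled to a common library size, after TMM scaling, an edgeR correction for differences in RNA composition, whose factors were 0.753 to 0.824 in Chow and 1.08 to 1.15 in Vehicle. They are not corrected for gene length, and levels are not compared between genes. A floor of 3 counts was 0.0607 to 0.124 CPM, and covers counting error only. Of 57132 identifiers, 18181 were tested. On a principal component holding 71.6% of the variance the 2 groups lay apart. Albumin (Alb), the defining plasma protein of hepatocytes, was abundant in all 9 libraries, at 103580, 73370, 78598 and 86316 CPM in Chow and 54836, 63180, 55357, 60863 and 60707 CPM in Vehicle. Vehicle replicates 1, 2 and 3 had counts for 145 to 218 of 1449 receptor genes of smell and pheromone sensing, against 54 and 75 in Vehicle replicates 4 and 5 and 42 to 102 in Chow. These receptors belong to sensory tissue, and calls of named genes that were lost against either Vehicle subset are given beside those genes. Their part in the results was not tested.

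Most of the expressed genes were called between the groups. By edgeR's quasi-likelihood test with Benjamini-Hochberg adjustment, 10035 genes were called at an adjusted p under 0.05 (55.2%), 5414 higher (29.8%) and 4621 lower (25.4%) in Vehicle. A change of at least 4-fold was called for 2215 genes higher (12.2%) and 272 lower (1.5%). The libraries of the 2 groups did not overlap for 8246 genes (45.4%). The direction went with abundance. Among the 125 genes averaging 1000 CPM or more, 102 fell (81.6%) and 5 rose (4.0%), whereas among 4888 genes between 1 and 10 CPM, 2224 rose (45.5%) and 739 fell (15.1%). Among 1492 genes between 100 and 1000 CPM, 960 fell (64.3%) and 148 rose (9.92%). The counts of each list below are to be read beside these shares as well as those over all tested genes. These shares rest on TMM scaling. The median log2 fold change of genes between 100 and 1000 CPM was -0.41 with it and 0.073 with raw library totals. For genes of 1000 CPM or more it was -0.75 and -0.27. In bulk tissue, fewer cells of a type and less RNA per cell cannot be told apart, and this holds for every gene group below. The 100 most abundant genes of each library held 35.8% ± 0.688 (SD, n = 5) of counts in Vehicle and 42.5% ± 1.55 (SD, n = 4) in Chow, with no overlap (exact two-sided permutation test, p = 0.0159, adjusted p = 0.0238 over 18 shares). The same test is given below for shares of gene lists, which were chosen with earlier results of these data known. Those p-values describe how the libraries separate and are no independent support.

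**Figure D1:**
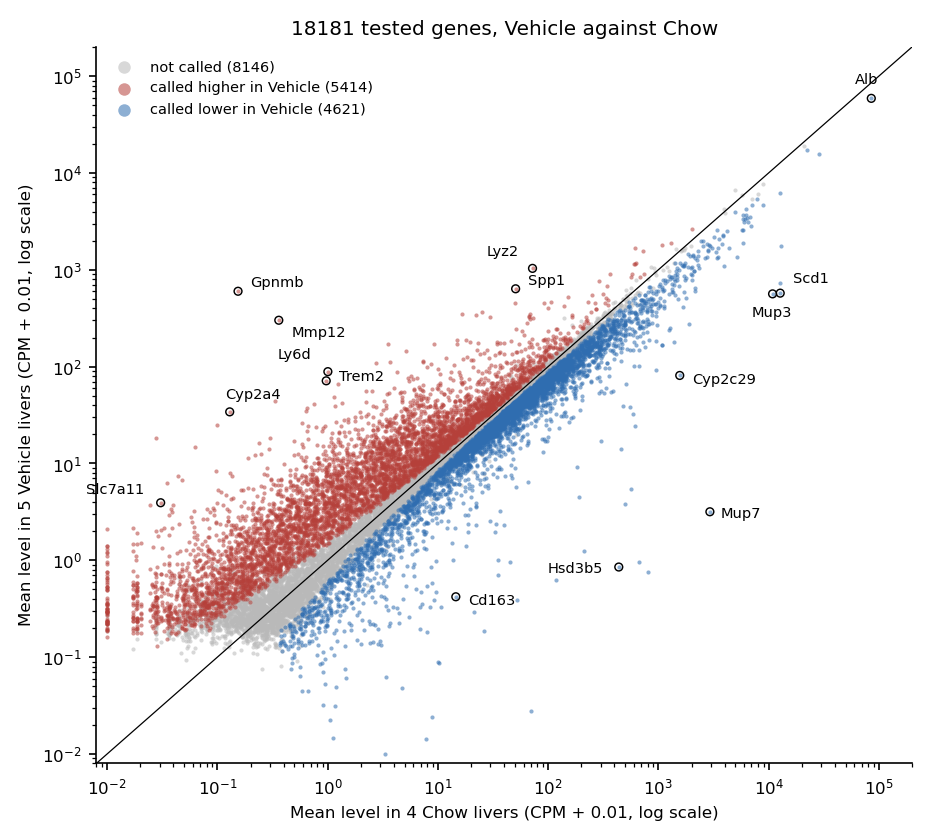
Mean level of each of 18181 tested genes in 4 Chow livers (horizontal) and 5 Vehicle livers (vertical), in CPM plus 0.01 on log axes, coloured by the call. The most abundant genes lie mostly below the diagonal of equal levels, Alb and Mup3 among them, while Gpnmb and Mmp12 stand below 1 CPM in Chow and above 100 CPM in Vehicle.

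The number of calls in each direction depended on the scaling. With raw library totals in place of TMM the median log2 fold change over all tested genes moved from 0.023 to 0.50, and the calls became 10389 higher and 1378 lower. All 5414 genes called higher kept that call. Of the 4621 called lower, 1378 kept it and 493 were called higher. Of 303 called genes named here, 28 kept their sign but lost their call with raw totals, all of them called lower with TMM: Aars, Abcc2, Acadvl, Alb, Bhlhe40, C4b, Canx, Cers2, Clock, Col18a1, Ecm1, Egfr, Fbp1, Fn1, Gapdh, Gata4, Hnf4a, Mup20, Nr1d1, Nr1h3, Nr1i2, Nr5a2, Psmd2, Sdc1, Slc27a2, Stat5b, Urod and Xbp1. Another 6, Ahsg, Gstm1, Hsd17b13, Itgb1, Ldha and Plin2, had a log2 fold change above 0 without a call, and were called higher with raw totals. Genes whose sign turned are given with that value where they are described. Lists in which most members fell are given below with both scalings, and every level below is TMM-scaled. Across protein-coding genes 33.4% rose and 27.6% fell, against 6.93% and 15.9% of pseudogenes.

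Secreted hepatocyte proteins fell by very different amounts. The largest falls were among the major urinary proteins, small pheromone carriers that male mice secrete into urine. In that list 0 of 20 tested members rose and 19 fell (median log2 fold change -5.16), and 0 rose and 17 fell with raw library totals. Mup3 was at 11939, 10189, 11917 and 9444 CPM in Chow and 678, 84.7, 394, 631 and 1034 CPM in Vehicle. The groups were far apart, and Vehicle replicate 2 had the lowest level of all 9 livers. Mup3 was 19.3-fold lower in Vehicle (log2 fold change -4.27 ± 0.54 SE, adjusted p = 1.84e-05). Mup7 stood at 2915, 2517, 3894 and 2419 CPM in Chow and 3.72, 0.0235, 0.0621, 2.08 and 9.93 CPM in Vehicle, so that every Vehicle liver was under 10 CPM and far below every Chow liver. Its log2 fold change was -9.85 ± 1.50 SE with an adjusted p of 0.000125, and -10.96 without Vehicle replicate 5, the highest of its group. Mup15 (log2 fold change -10.06, and -9.40 without Chow replicate 3), Mup17 (-9.44, and -10.29 without Vehicle replicate 5), Mup16 (-7.56, and -6.76 without Chow replicate 3), Mup11 (-6.70) and Mup14 (-5.42) fell too. Mup20, the male pheromone darcin, fell least among those the rule named, 2.41-fold with overlapping libraries (log2 fold change -1.27 ± 0.38 SE, adjusted p = 0.0106), and lost its call against Vehicle replicates 4 and 5 only. These paralogs are nearly identical in sequence, so that the split of reads between them is uncertain. Their summed share was 0.382% ± 0.198 (SD, n = 5) of counts in Vehicle and 1.87% ± 0.333 (SD, n = 4) in Chow (exact two-sided permutation test, p = 0.0159, adjusted p = 0.0238). The sum does not depend on the split among the listed genes. Reads left uncounted or assigned to other genes would still affect it, and how reads were counted is not stated.

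Carriers and protease inhibitors of plasma fell moderately. Among plasma carrier and binding proteins 1 of 26 tested members rose and 16 fell (median log2 fold change -0.55), and 6 rose and 8 fell with raw library totals. Albumin was 1.45-fold lower in Vehicle (log2 fold change -0.53 ± 0.12 SE, adjusted p = 0.00153), and all 5 Vehicle livers lay below all 4 Chow livers, but with raw totals its log2 fold change was -0.048 (adjusted p = 0.663). Of the alpha-1-antitrypsin paralogs, inhibitors of neutrophil elastase, Serpina1d was 3.58-fold, Serpina1c 4-fold and Serpina1b 1.91-fold lower. Serpina3k, a kallikrein-binding inhibitor, was at 13161, 10013, 15962 and 12205 CPM in Chow and 2154, 711, 1637, 1765 and 2601 CPM in Vehicle, with Vehicle replicate 2 lowest. It was 7.24-fold lower in Vehicle (log2 fold change -2.86 ± 0.32 SE, adjusted p = 3.56e-06). Transferrin (Trf), the iron carrier, was not called, and its sign depended on the scaling (log2 fold change -0.14 ± 0.12 SE, adjusted p = 0.318, and 0.34 with raw totals). The summed share of these genes was 14% ± 0.543 (SD, n = 5) of counts in Vehicle and 15.4% ± 1.62 (SD, n = 4) in Chow, with overlap (exact two-sided permutation test, p = 0.143, adjusted p = 0.171).

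Clotting genes fell, most complement genes fell with TMM scaling, and the 3 chains of C1q rose. Of the coagulation and fibrinolysis factors 1 of 21 tested members rose and 20 fell (median log2 fold change -0.76), and 1 rose and 13 fell with raw library totals. Antithrombin (Serpinc1) was 1.98-fold, plasma kallikrein (Klkb1) 2.15-fold, factor VII (F7) 2.24-fold and the fibrinogen chains Fga and Fgb 1.7-fold and 1.75-fold lower. Among complement components 3 of 24 tested members rose and 18 fell (median log2 fold change -0.71), and 4 rose and 10 fell with raw library totals. Mbl2, a mannose-binding lectin that starts the lectin pathway, was at 328, 316, 288 and 347 CPM in Chow and 45.9, 38.9, 33.3, 61.2 and 86.6 CPM in Vehicle and was 6.01-fold lower in Vehicle (log2 fold change -2.59 ± 0.26 SE, adjusted p = 1.31e-06). Masp2, its protease, was 2.41-fold lower, and C8g, a part of the membrane attack complex, 2.33-fold lower. C1qb, a chain of the C1q recognition molecule that macrophages make, was at 21.4, 28.2, 32.2 and 54.6 CPM in Chow and 230.4, 184, 164, 131 and 156 CPM in Vehicle and was 5.09-fold higher in Vehicle (log2 fold change 2.35 ± 0.24 SE, adjusted p = 1.57e-06). C3, the central component, was not called (log2 fold change -0.23 ± 0.14 SE, adjusted p = 0.178), and C4b fell 1.46-fold with overlapping libraries, a call lost without Chow replicate 4 (adjusted p = 0.0759) and against Vehicle replicates 4 and 5 only. The complement list held 1.6% ± 0.199 (SD, n = 5) of counts in Vehicle and 1.68% ± 0.297 (SD, n = 4) in Chow. These shares overlapped (exact two-sided permutation test, p = 0.603, adjusted p = 0.603).

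A single Chow liver stood apart in the acute phase genes. Chow replicate 4 had Lcn2, an iron-scavenging defence protein, at 82.2 CPM, against 1.96 to 2.92 CPM in the other Chow livers and 649, 305, 167, 213 and 382 CPM in Vehicle. Lcn2 was 15.5-fold higher in Vehicle (log2 fold change 3.95 ± 1.08 SE, adjusted p = 0.0078), with a log2 fold change of 7.14 without Chow replicate 4 and an adjusted p of 0.0541 against Vehicle replicates 4 and 5 only. Haptoglobin (Hp), which binds free haemoglobin, was at 2506, 2244, 2356 and 8665 CPM in Chow and 5952, 3231, 3612, 3870 and 4419 CPM in Vehicle. It was not called (log2 fold change 0.097 ± 0.35 SE, adjusted p = 0.832), but without Chow replicate 4 its log2 fold change was 0.84 with an adjusted p of 0.000726. Of the whole list 8 of 20 tested members rose and 5 fell (median log2 fold change 0.18), and the median was 1.18 without Chow replicate 4 and 0.90 with limma-voom. Il1rn, the interleukin-1 receptor antagonist, was 19.9-fold higher, with a log2 fold change of 4.32 that became 5.29 without Chow replicate 4. Crp, a pentraxin, was 1.84-fold lower. Orm1 was not called (log2 fold change -0.47 ± 0.32 SE, adjusted p = 0.233), but was called lower without Vehicle replicate 1 (log2 fold change -0.83).

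**Figure D2:**
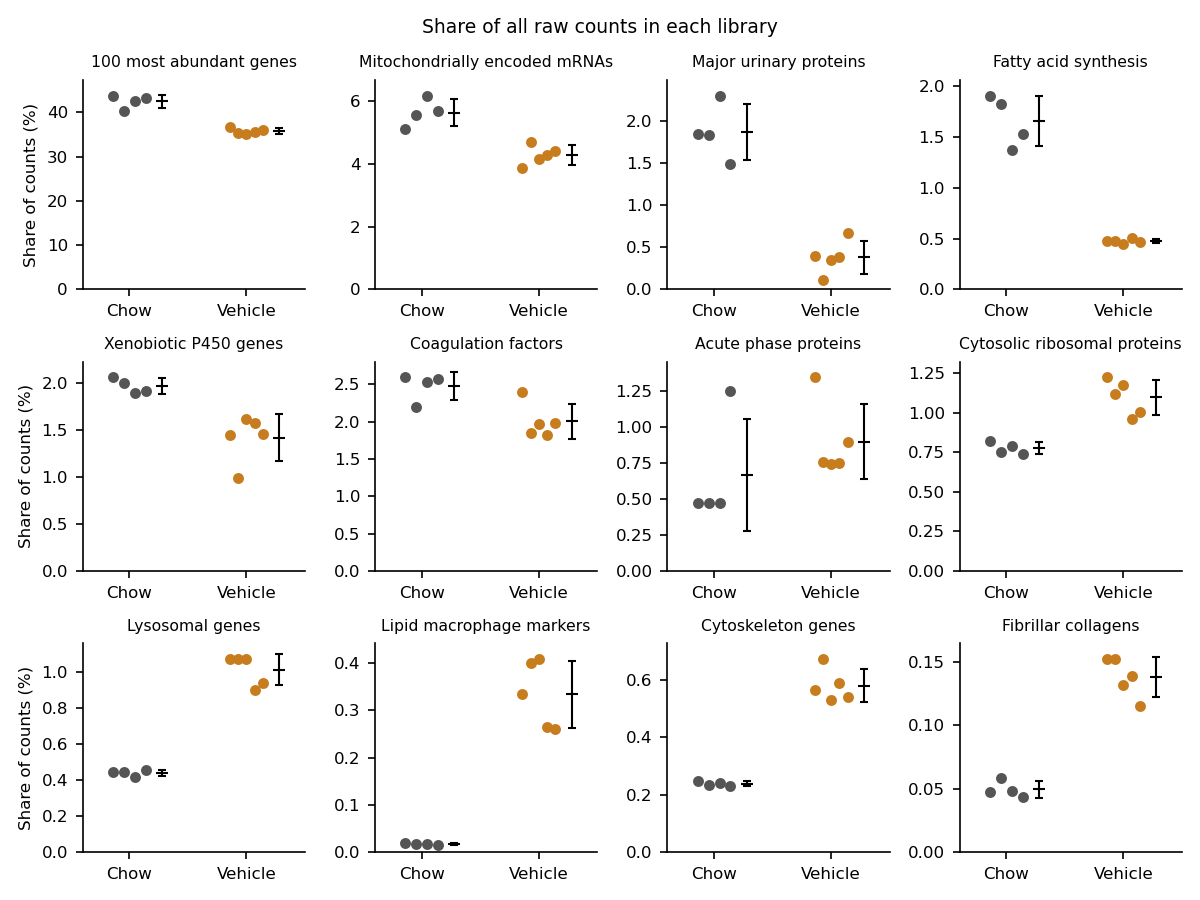
Share of all raw counts (%) held by 12 gene groups in each of 4 Chow and 5 Vehicle libraries (points), with mean and SD (bars). In the shares shown, the groups do not overlap except for coagulation factors and acute phase proteins, in the latter because Chow replicate 4 lies at 1.25% and the other Chow libraries at 0.469% to 0.472%. Of the 18 shares compared, those of plasma carrier, apolipoprotein and complement genes and of the 10 most abundant genes are not shown and overlap. Those of MHC class II and conjugating enzyme genes are not shown and do not overlap.

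Most lipoprotein genes fell. Of apolipoproteins and assembly genes 2 of 23 tested members rose and 17 fell (median log2 fold change -0.65), and 4 rose and 10 fell with raw library totals. Mttp, which loads triglyceride onto apolipoprotein B, was at 416, 414, 384 and 361 CPM in Chow and 153, 179.9, 165, 194 and 180.0 CPM in Vehicle, with no overlap, and was 2.26-fold lower in Vehicle (log2 fold change -1.18 ± 0.097 SE, adjusted p = 8.95e-08). Sar1b, a GTPase of the coat that exports such particles from the endoplasmic reticulum, was 2.19-fold lower. Apobec1, the editing enzyme for apolipoprotein B mRNA, was 2.12-fold higher. Apoe was among the 10 largest losses in CPM at 25935, 22190, 20262 and 20165 CPM in Chow and 20051, 16059, 17662, 17291 and 16246 CPM in Vehicle. It was called 1.27-fold lower (log2 fold change -0.34 ± 0.12 SE, adjusted p = 0.0217), but lost that call without Chow replicate 1 (adjusted p = 0.0935) or against either subset of the Vehicle livers, and its log2 fold change was 0.14 with raw totals. Apoa1 was not called (log2 fold change -0.38 ± 0.16 SE, adjusted p = 0.0523), but was called lower without Chow replicate 2, without Vehicle replicate 1 and with DESeq2. The summed share of the list was 4.03% ± 0.298 (SD, n = 5) of counts in Vehicle and 4.15% ± 0.285 (SD, n = 4) in Chow (exact two-sided permutation test, p = 0.476, adjusted p = 0.504).

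The endoplasmic reticulum folding genes fell while the amino acid response genes rose. The unfolded protein response induces chaperones when proteins misfold in the endoplasmic reticulum, partly through an ER stress element that the factor ATF6 binds with NF-Y. The integrated stress response raises ATF4, which acts with CCAAT/enhancer-binding proteins at a composite element in genes of amino acid supply. Promoters with these elements are printed to show which letters the genes of each list carry. They come from RefSeq (GRCm38.p6), 300 bases each, from 250 before to 50 after the start, written along the gene's strand with the matching letters in capitals. The first 3 hold the ER stress element, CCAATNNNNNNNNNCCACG on either strand. The last 3 hold the ATF4 composite element, TGATGNAA on either strand.
Hspa5, the chaperone BiP, chr2:34771840-34772139, + strand: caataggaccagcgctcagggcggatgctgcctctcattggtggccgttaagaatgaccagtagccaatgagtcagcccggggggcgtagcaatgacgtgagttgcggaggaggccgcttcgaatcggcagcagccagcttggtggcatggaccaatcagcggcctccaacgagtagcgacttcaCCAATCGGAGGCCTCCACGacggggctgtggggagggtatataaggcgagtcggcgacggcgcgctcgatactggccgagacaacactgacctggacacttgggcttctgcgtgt
Calr, the chaperone calreticulin, chr8:84846882-84847181, - strand: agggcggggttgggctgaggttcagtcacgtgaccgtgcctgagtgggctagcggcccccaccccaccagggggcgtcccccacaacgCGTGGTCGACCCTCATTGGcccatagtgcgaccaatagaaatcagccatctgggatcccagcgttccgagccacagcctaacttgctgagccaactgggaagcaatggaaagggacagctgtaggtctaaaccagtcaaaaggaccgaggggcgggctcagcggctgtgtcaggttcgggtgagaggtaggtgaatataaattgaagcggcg
Creld2, an endoplasmic reticulum disulfide isomerase, chr15:88819396-88819695, + strand: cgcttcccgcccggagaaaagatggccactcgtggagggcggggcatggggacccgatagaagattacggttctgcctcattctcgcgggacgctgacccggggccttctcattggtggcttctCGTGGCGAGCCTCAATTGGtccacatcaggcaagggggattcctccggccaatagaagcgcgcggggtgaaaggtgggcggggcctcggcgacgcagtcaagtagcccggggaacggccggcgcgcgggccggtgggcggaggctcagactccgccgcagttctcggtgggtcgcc
Slc7a11, the cystine transporter, chr3:50443564-50443863, - strand: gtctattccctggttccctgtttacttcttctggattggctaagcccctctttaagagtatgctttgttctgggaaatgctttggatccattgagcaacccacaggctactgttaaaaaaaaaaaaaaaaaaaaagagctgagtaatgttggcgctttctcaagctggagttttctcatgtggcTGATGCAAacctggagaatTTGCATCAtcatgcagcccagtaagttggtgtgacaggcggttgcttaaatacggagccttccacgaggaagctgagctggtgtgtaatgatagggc
Nupr1, a stress-induced nuclear protein, chr7:126625421-126625720, - strand: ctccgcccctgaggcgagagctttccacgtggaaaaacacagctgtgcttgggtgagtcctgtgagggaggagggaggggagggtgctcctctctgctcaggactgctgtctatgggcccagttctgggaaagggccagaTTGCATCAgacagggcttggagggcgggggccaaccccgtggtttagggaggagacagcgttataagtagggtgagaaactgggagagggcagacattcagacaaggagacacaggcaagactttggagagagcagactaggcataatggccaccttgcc
Aars, alanyl-tRNA synthetase, chr8:111033592-111033891, + strand: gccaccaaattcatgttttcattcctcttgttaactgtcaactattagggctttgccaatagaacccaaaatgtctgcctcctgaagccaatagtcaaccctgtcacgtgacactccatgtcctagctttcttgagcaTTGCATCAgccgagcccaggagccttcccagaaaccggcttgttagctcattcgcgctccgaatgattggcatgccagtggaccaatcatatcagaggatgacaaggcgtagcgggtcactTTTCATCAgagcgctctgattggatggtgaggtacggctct

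Of the unfolded protein response list 1 of 24 tested members rose and 19 fell (median log2 fold change -1.10), and 3 rose and 16 fell with raw library totals. Hspa5 was at 1887, 3009.9, 1996 and 1262 CPM in Chow and 594, 994, 512, 1025 and 797 CPM in Vehicle. Every Vehicle liver was below every Chow liver, with Chow replicate 2 highest. It was 2.6-fold lower in Vehicle (log2 fold change -1.38 ± 0.23 SE, adjusted p = 0.000112). Creld2 was at 125, 289, 149 and 79.4 CPM in Chow and 25.6, 37.9, 19, 32 and 31.9 CPM in Vehicle, again with Chow replicate 2 highest, and was 5.48-fold lower in Vehicle (log2 fold change -2.46 ± 0.30 SE, adjusted p = 1.06e-05). Calr was 1.79-fold lower. The transport and degradation genes Sel1l, Edem1 and Dnajb11, a co-chaperone of BiP, were 2.34-fold, 2.11-fold and 2.17-fold lower. Derl3, a degradation factor, had a log2 fold change of -2.97 that became -1.69 without Chow replicate 2. The element was found in 9 of the 20 list members with a promoter in the table and in 20 of 12262 tested genes with one (0.163%). With TMM scaling all 9 carriers of the list fell: Hspa5, Hsp90b1, Calr, Canx, Pdia6, Dnajc3, Creld2, Syvn1 and Derl3, of which those outside the naming rule were chosen after their values were seen. Most list members whose promoter lacks the element fell too. Over all tested genes it was in 4 of 1557 promoters of genes called at least 4-fold higher (0.257%). It was in 3 of 149 of those called at least 4-fold lower (2.01%). Canx lost its call with raw totals (log2 fold change -0.044, adjusted p = 0.634). This element is a known feature of such genes, and a match is a description of letters, not of binding.

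Among integrated stress response genes 17 of 27 tested members rose and 3 fell (median log2 fold change 0.91), and 21 rose and 1 fell with raw library totals. Slc7a11 was at 0, 0, 0 and 0.0824 CPM in Chow and 4.17, 3.84, 4.72, 2.57 and 4.31 CPM in Vehicle, at or below 2 counts in every Chow liver, so that no fold is given. Nupr1 was at 0.877, 0.601, 0.695 and 0.948 CPM in Chow and 29.2, 18.2, 32.5, 15.7 and 22.4 CPM in Vehicle and was 30.6-fold higher in Vehicle (log2 fold change 4.93 ± 0.37 SE, adjusted p = 8.27e-08). Psat1, an enzyme of serine synthesis, was 23.7-fold higher, Slc7a1, a transporter of cationic amino acids, 6.73-fold higher and the factor Atf5 1.79-fold higher. Aars carries the element, including a second copy just after the start, yet fell 1.49-fold (log2 fold change -0.57 ± 0.10 SE, adjusted p = 0.000205), a call lost with raw totals (log2 fold change -0.095, adjusted p = 0.374). The ATF4 element was found in 9 of 25 list members with a promoter and in 302 of 12262 tested genes (2.46%). Of those 9, Atf3, Trib3, Asns, Slc7a11, Nupr1, Fgf21 and Gars rose, Aars fell, and Chac1 was not called (log2 fold change 0.29 ± 0.43 SE, adjusted p = 0.595). Over all tested genes with a promoter, the ATF4 element was in 49 of 1557 called at least 4-fold higher (3.15%). It was in 7 of 149 called at least 4-fold lower (4.7%), so that its presence did not go with rises alone. Both elements were searched after the values of these lists had been seen.

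**Figure D3:**
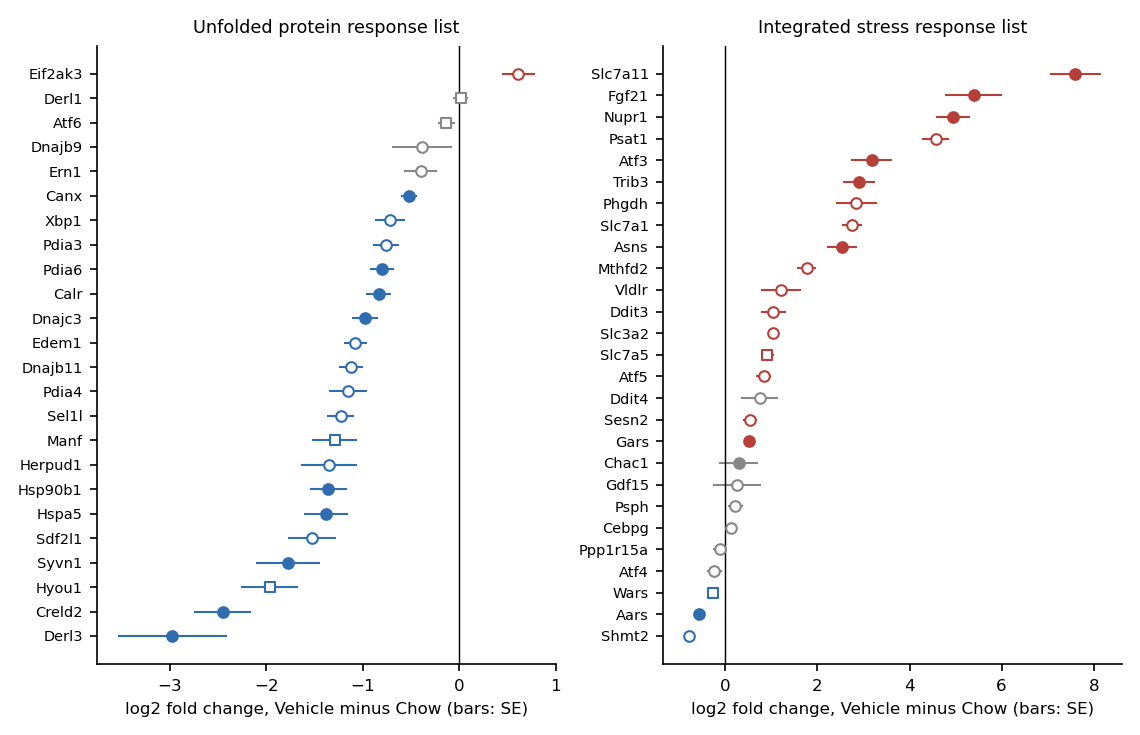
log2 fold change, Vehicle minus Chow, with SE bars, for every tested member of the unfolded protein response list (left) and the integrated stress response list (right), red where called higher, blue where called lower and grey where not called. Filled circles mark promoters holding the element of that list, open circles those without it and squares genes with no promoter in the table. The fitted value of Slc7a11 rests on almost no Chow counts and is no measure of size, and with raw totals the median was -0.62 in the left list and 1.39 in the right list.

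Fat synthesis fell steeply. Of fatty acid synthesis and desaturation genes 3 of 23 tested members rose and 16 fell (median log2 fold change -1.40), and 6 rose and 15 fell with raw library totals. Scd1, which makes monounsaturated fatty acids, was at 16390, 13055, 9375 and 12193 CPM in Chow and 851, 396, 395, 533 and 696 CPM in Vehicle. It was among the 10 largest losses in CPM. The groups lay far apart, and the highest Vehicle liver was far below the lowest Chow liver. It was 22.2-fold lower in Vehicle (log2 fold change -4.47 ± 0.29 SE, adjusted p = 1.34e-08). Fatty acid synthase (Fasn) was at 1316, 1489, 1328 and 863 CPM in Chow and 198, 129, 181, 442 and 259 CPM in Vehicle and was 5.17-fold lower in Vehicle (log2 fold change -2.37 ± 0.37 SE, adjusted p = 9.28e-05). Thrsp, a nuclear protein that stimulates lipogenesis, was 32.6-fold lower, the elongase Elovl3 25.1-fold lower, malic enzyme (Me1) 5.38-fold lower and citrate lyase (Acly) 3.4-fold lower. The related desaturase Scd2 went the other way, at 13.4, 9.65, 9.76 and 12 CPM in Chow and 37.2, 51.6, 41, 44.8 and 27.3 CPM in Vehicle, and was 3.61-fold higher in Vehicle (log2 fold change 1.85 ± 0.19 SE, adjusted p = 1.22e-06). The list held 0.476% ± 0.02 (SD, n = 5) of counts in Vehicle and 1.66% ± 0.249 (SD, n = 4) in Chow, with no overlap (exact two-sided permutation test, p = 0.0159, adjusted p = 0.0238).

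Cholesterol synthesis and peroxisomes fell as well. Of cholesterol synthesis and uptake genes 1 of 23 tested members rose and 16 fell (median log2 fold change -0.79), and 3 rose and 7 fell with raw library totals. Insig1, which holds back the activation of sterol genes, was 3.12-fold lower, the sterol carrier Stard4 2.23-fold lower, and the synthesis enzymes Sc5d and Ebp 2.12-fold and 2.04-fold lower. Of peroxisome biogenesis genes 0 of 22 tested members rose and 20 fell (median log2 fold change -0.61), and 2 rose and 9 fell with raw library totals. Catalase (Cat) was at 4886, 4253, 4364 and 3956 CPM in Chow and 1539, 1397, 1522, 2081 and 1917 CPM in Vehicle, with no overlap, and was 2.58-fold lower in Vehicle (log2 fold change -1.37 ± 0.13 SE, adjusted p = 5.1e-07). Abcd3, a transporter of the peroxisomal membrane, was 2.58-fold lower and Phyh, which starts the breakdown of branched fatty acids, 1.74-fold lower.

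In fatty acid oxidation more genes fell than rose. There 7 of 32 tested members rose and 15 fell (median log2 fold change -0.29), while the median was 0.19 with raw totals. The mitochondrial enzymes Acaa2, Cpt2 and Acadvl were 1.83-fold, 1.67-fold and 1.57-fold lower. Among lipid droplet proteins 5 of 21 tested members rose and 9 fell (median log2 fold change -0.29), with a median of 0.19 with raw totals. Cidec, which fuses droplets, was at 6.88, 12.8, 3.94 and 5.4 CPM in Chow and 33.7, 81.4, 58.5, 32.8 and 39.8 CPM in Vehicle and was 6.73-fold higher in Vehicle (log2 fold change 2.75 ± 0.36 SE, adjusted p = 2.56e-05). Plin2, the general droplet coat of hepatocytes, was not called (log2 fold change 0.31 ± 0.15 SE, adjusted p = 0.0924), but was called higher without Vehicle replicate 4 (log2 fold change 0.40), without replicates 4 and 5, with limma-voom and with raw totals (0.80). Hsd17b13 was not called (log2 fold change 0.20 ± 0.17 SE, adjusted p = 0.356), but was with raw totals (0.68). Mgll, which splits monoglycerides, was 1.8-fold lower, and Abhd5, the activator of the adipose triglyceride lipase, 1.86-fold lower.

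Fatty acid uptake genes went both ways. Of the PPAR-gamma and fatty acid uptake list 10 of 22 tested members rose and 7 fell (median log2 fold change 0.48), with a median of 0.81 without Vehicle replicate 4. Lipoprotein lipase (Lpl), little expressed in adult hepatocytes and abundant in macrophages, was at 14.1, 12.5, 24.2 and 15.2 CPM in Chow and 340.2, 405, 369, 328 and 318 CPM in Vehicle. Every Vehicle liver was far above every Chow liver. It was 21.3-fold higher in Vehicle (log2 fold change 4.42 ± 0.21 SE, adjusted p = 4.78e-10). Ucp2, an inner membrane carrier, was 6.56-fold higher and the transporter Slc27a1 4.02-fold higher. The hepatocyte genes Fabp1, a fatty acid binding protein, and Slc27a2 were 2.57-fold and 1.63-fold lower. Sphingolipid genes went both ways, since 15 of 25 tested members rose and 6 fell (median log2 fold change 0.42). The sphingomyelinase Smpd3 was 7.45-fold higher and the ceramide synthase Cers5 3.74-fold higher, while Cers2, the main ceramide synthase of hepatocytes, was 1.46-fold lower. In the prostaglandin and leukotriene list 11 of 23 tested members rose and 5 fell (median log2 fold change 1.47). Hpgds, the prostaglandin D synthase of blood cells, was at 0.421, 1.12, 1.29 and 1.44 CPM in Chow and 20.3, 21, 17.8, 15.8 and 17.4 CPM in Vehicle and was 17.3-fold higher in Vehicle (log2 fold change 4.11 ± 0.22 SE, adjusted p = 1.75e-09).

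Most bile acid genes fell. Of the list 2 of 23 tested members rose and 16 fell (median log2 fold change -1.06), and 3 rose and 13 fell with raw library totals. Slc10a1, the sodium-coupled bile acid importer, was at 867, 646, 744 and 650.4 CPM in Chow and 207, 114, 185, 207 and 190.2 CPM in Vehicle, with Vehicle replicate 2 lowest, and was 4.03-fold lower in Vehicle (log2 fold change -2.01 ± 0.17 SE, adjusted p = 1.58e-07). Abcb11, the bile salt export pump, was 2.47-fold lower and Slc27a5, which activates bile acids, 2.83-fold lower. Akr1d1, a reductase of bile acid synthesis, was 2.73-fold lower. Abcc2, an organic anion pump, was 1.59-fold lower, a call lost against Vehicle replicates 4 and 5 only.

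The choline and methyl group pathways divided. Of choline uptake and phosphatidylcholine genes 9 of 22 tested members rose and 9 fell (median log2 fold change -0.017), with a median of 0.46 with raw totals. The enzymes of acyl exchange Lpcat2 and Lpcat1 rose 5.77-fold and 3.57-fold, as did the choline transporter Slc44a2 (3.06-fold). Lpcat2 was at 1.47, 2.41, 2.09 and 3.3 CPM in Chow and 14.9, 15.1, 13.5, 11.8 and 11.1 CPM in Vehicle. On the ethanolamine branch Etnk2 and Pcyt2 fell 2.04-fold and 1.71-fold. Pcyt2 was at 729, 804, 744 and 679 CPM in Chow and 432, 356, 429.8, 481 and 456 CPM in Vehicle. In methionine and one-carbon metabolism 5 of 24 tested members rose and 17 fell (median log2 fold change -0.82), and 6 rose and 13 fell with raw library totals. Bhmt, which uses the choline product betaine to remake methionine, was at 4159.5, 3540.4, 3099 and 3058 CPM in Chow and 1302, 1095, 1039.6, 1670.2 and 1726 CPM in Vehicle and was 2.54-fold lower in Vehicle (log2 fold change -1.34 ± 0.25 SE, adjusted p = 0.000324). Gnmt, which spends methyl groups on glycine, was at 2736, 2087, 1887 and 1850.5 CPM in Chow and 749, 599, 572, 641 and 652 CPM in Vehicle and was 3.33-fold lower in Vehicle (log2 fold change -1.74 ± 0.16 SE, adjusted p = 2.6e-07). Shmt1, Aldh1l1 and Ahcy, enzymes of folate and homocysteine turnover, were 2.85-fold, 3.48-fold and 2.84-fold lower. Mat1a, the hepatic S-adenosylmethionine synthase, was called 1.25-fold lower, lost that call without Chow replicate 1, Chow replicate 2 or Vehicle replicate 5 and against either subset of Vehicle livers, and had a log2 fold change of 0.16 with raw totals.

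Most genes of amino acid breakdown fell. Of 38 tested genes of amino acid breakdown 34 fell and 0 rose (median log2 fold change -0.88), and 3 rose and 25 fell with raw library totals. Hpd, an enzyme of tyrosine breakdown, was at 2472, 2067, 1901 and 1931 CPM in Chow and 1095, 858, 949.6, 1022 and 921 CPM in Vehicle, with no overlap, and was 2.16-fold lower in Vehicle (log2 fold change -1.11 ± 0.12 SE, adjusted p = 1.58e-06). Tat, the first step of that pathway, was 2.25-fold lower, with the Vehicle livers at 626, 1302, 584, 1389.5 and 559 CPM, high in replicates 2 and 4. Ivd and Mccc2, enzymes of leucine breakdown, were 1.8-fold and 1.98-fold lower. In the urea cycle and ammonia list 3 of 16 tested members rose and 12 fell (median log2 fold change -0.84), and 3 rose and 9 fell with raw library totals. Carbamoyl phosphate synthetase (Cps1), which fixes ammonia, was at 6426, 5307, 7132 and 4465 CPM in Chow and 1637, 2463, 1607, 1756 and 1964 CPM in Vehicle and was 3.09-fold lower in Vehicle (log2 fold change -1.63 ± 0.17 SE, adjusted p = 8.22e-07). Ass1, Asl and Arg1, the steps that follow, were 2.07-fold, 2.57-fold and 2.6-fold lower. In tryptophan breakdown and NAD synthesis 1 of 16 tested members rose and 11 fell (median log2 fold change -0.72), and 2 rose and 7 fell with raw library totals. Afmid, a formamidase, was at 48.4, 43.5, 32.5 and 36.6 CPM in Chow and 7.85, 6.21, 6.46, 7.77 and 8.67 CPM in Vehicle and was 5.44-fold lower in Vehicle (log2 fold change -2.44 ± 0.17 SE, adjusted p = 1.57e-08). Ido2, Haao and Kmo, which act along the kynurenine route, were 4.18-fold, 3.4-fold and 2.52-fold lower, and Tdo2, its entry enzyme, 2.17-fold lower.

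Most genes of glucose output fell with TMM scaling, while glycolytic genes of other tissues more often rose. Of gluconeogenesis and glycogen genes 1 of 18 tested members rose and 12 fell (median log2 fold change -0.60), and 3 rose and 7 fell with raw library totals. Pygl, the liver glycogen phosphorylase, was at 915, 828, 839 and 665 CPM in Chow and 239, 221, 240.4, 370.3 and 322 CPM in Vehicle and was 2.91-fold lower in Vehicle (log2 fold change -1.54 ± 0.15 SE, adjusted p = 6.51e-07). Slc37a4, the glucose 6-phosphate transporter, Slc2a2, the hepatocyte glucose transporter, and Fbp1 were 2.42-fold, 1.75-fold and 1.6-fold lower, the last with no call under raw totals (adjusted p = 0.206). Pck1, the cytosolic enzyme that starts gluconeogenesis, was not called (log2 fold change -0.1 ± 0.22 SE, adjusted p = 0.729), whereas the mitochondrial form Pck2 was 4.48-fold higher. Among glycolytic genes other than the hepatocyte isoforms 9 of 17 tested members rose and 4 fell (median log2 fold change 0.82). Pkm, the pyruvate kinase of most other tissues, was at 21.5, 19.8, 17.6 and 20.7 CPM in Chow and 134, 131, 116, 101 and 103 CPM in Vehicle and was 5.89-fold higher in Vehicle (log2 fold change 2.56 ± 0.14 SE, adjusted p = 1.75e-09). Pfkp was 7.35-fold higher, highest in Vehicle replicate 2, and Slc16a3, a lactate exporter, 9.06-fold higher. Gapdh fell 1.48-fold (log2 fold change -0.56 ± 0.096 SE, adjusted p = 0.000115), and Ldha was not called (log2 fold change 0.015 ± 0.13 SE, adjusted p = 0.931) except with raw totals (log2 fold change 0.50).

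Most drug metabolism genes fell. Of cytochrome P450 genes of the xenobiotic families 6 of 36 tested members rose and 24 fell (median log2 fold change -0.96), and 8 rose and 23 fell with raw library totals. Cyp2c29 was at 1977, 1571, 1206 and 1502 CPM in Chow and 59.8, 94.1, 70.2, 117 and 64.8 CPM in Vehicle, with no overlap, and was 19.3-fold lower in Vehicle (log2 fold change -4.27 ± 0.20 SE, adjusted p = 4.78e-10). Cyp3a25 was 3.63-fold, Cyp2c37 3.69-fold and Cyp3a11 1.73-fold lower. Among conjugating enzymes 6 of 37 tested members rose and 23 fell (median log2 fold change -0.72), and 11 rose and 13 fell with raw library totals. The glucuronosyltransferase Ugt2b1 was at 1025, 805, 1118 and 856 CPM in Chow and 164, 152, 178, 194 and 235 CPM in Vehicle and was 5.16-fold lower in Vehicle (log2 fold change -2.37 ± 0.16 SE, adjusted p = 1.14e-08). The glutathione transferases differed from one another: Gstp1, Gstt3 and Gsta3 were 3.62-fold, 3.57-fold and 2.21-fold lower, Gstm3 was 4.97-fold higher, and Gstm1 was not called (log2 fold change 0.17 ± 0.14 SE, adjusted p = 0.318) except against Vehicle replicates 4 and 5 only and with raw totals (log2 fold change 0.65). Cytochrome P450 and glutathione transferase genes have close paralogs, and the split of reads between them is uncertain. The P450 list held 1.42% ± 0.25 (SD, n = 5) of counts in Vehicle and 1.97% ± 0.0811 (SD, n = 4) in Chow, with no overlap (exact two-sided permutation test, p = 0.0159, adjusted p = 0.0238).

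Male-biased genes fell without exception. The sex bias of mouse liver is set by pulses of growth hormone acting through STAT5b. Of male-biased genes 0 of 18 tested members rose and 18 fell (median log2 fold change -3.25), and 0 rose and 18 fell with raw library totals. Hsd3b5, a male-specific steroid dehydrogenase, was at 514, 292, 615 and 330.3 CPM in Chow and 0.297, 0, 0.124, 0.526 and 3.27 CPM in Vehicle. All Vehicle livers were under 4 CPM. It was 513-fold lower in Vehicle (log2 fold change -9.0 ± 0.88 SE, adjusted p = 3.1e-06), with a log2 fold change of -10.80 without Vehicle replicate 5. Cyp7b1, an oxysterol hydroxylase, was at 403, 385, 739 and 396 CPM in Chow and 40.9, 15.1, 31.3, 45.9 and 63.4 CPM in Vehicle and was 12.2-fold lower in Vehicle (log2 fold change -3.61 ± 0.36 SE, adjusted p = 2.18e-06). Serpina1e was at 12999, 7651, 17250 and 12939 CPM in Chow and 949.5, 49.5, 531, 811 and 1287 CPM in Vehicle and was 17.5-fold lower in Vehicle (log2 fold change -4.13 ± 0.77 SE, adjusted p = 0.000548). Cyp2u1 and Hsd17b2 were 8.93-fold and 2.3-fold lower. Of 12 tested female-biased genes, of 19 listed, 8 rose and 1 fell (median log2 fold change 2.33). Cyp2b9 was at 0.351, 1.83, 0.0662 and 0.742 CPM in Chow and 23.2, 94.8, 31.4, 42.3 and 15.9 CPM in Vehicle and was 53-fold higher in Vehicle (log2 fold change 5.73 ± 0.79 SE, adjusted p = 5.5e-05), and its log2 fold change was 6.82 without Chow replicate 2. Fmo2, a flavin monooxygenase, was 4.7-fold higher and Prom1 8.09-fold higher. In the growth hormone axis 5 of 19 tested members rose and 6 fell (median log2 fold change 0.11), near the 29.8% and 25.4% of all tested genes. The receptor Ghr was at 871, 821, 850.1 and 725 CPM in Chow and 276, 183, 262, 305 and 353 CPM in Vehicle and was 2.96-fold lower in Vehicle (log2 fold change -1.57 ± 0.17 SE, adjusted p = 1.52e-06). Igf1, the growth factor it induces, was 1.97-fold lower, its plasma partner Igfals 3.31-fold lower, Igfbp2 2.47-fold higher and Stat5b 1.44-fold lower.

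Vehicle replicate 2 stood at the edge of its group in this programme. It was the lowest of the 5 Vehicle livers, or tied for lowest, in 18 of 18 tested male-biased genes, lowest in 15 of 20 major urinary proteins and highest in 10 of 12 female-biased genes. Cyp2a4, a female-biased hydroxylase, was at 2.74, 148, 7.95, 6.19 and 6.09 CPM in Vehicle and 0.0993 to 0.14 CPM in Chow. Its log2 fold change of 8.13 (adjusted p = 0.00217) became 5.56 without Vehicle replicate 2, and with limma-voom it was not called (adjusted p = 0.0939). Summed over the male-biased list the 5 Vehicle livers held 3041, 1203, 2301, 2989 and 4027 CPM. Vehicle replicate 5 was highest in 11 of those 18 genes. The direction against Chow did not rest on replicate 2, because the other 4 Vehicle livers also lay below all Chow livers in each male-biased gene named here.

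**Figure D4:**
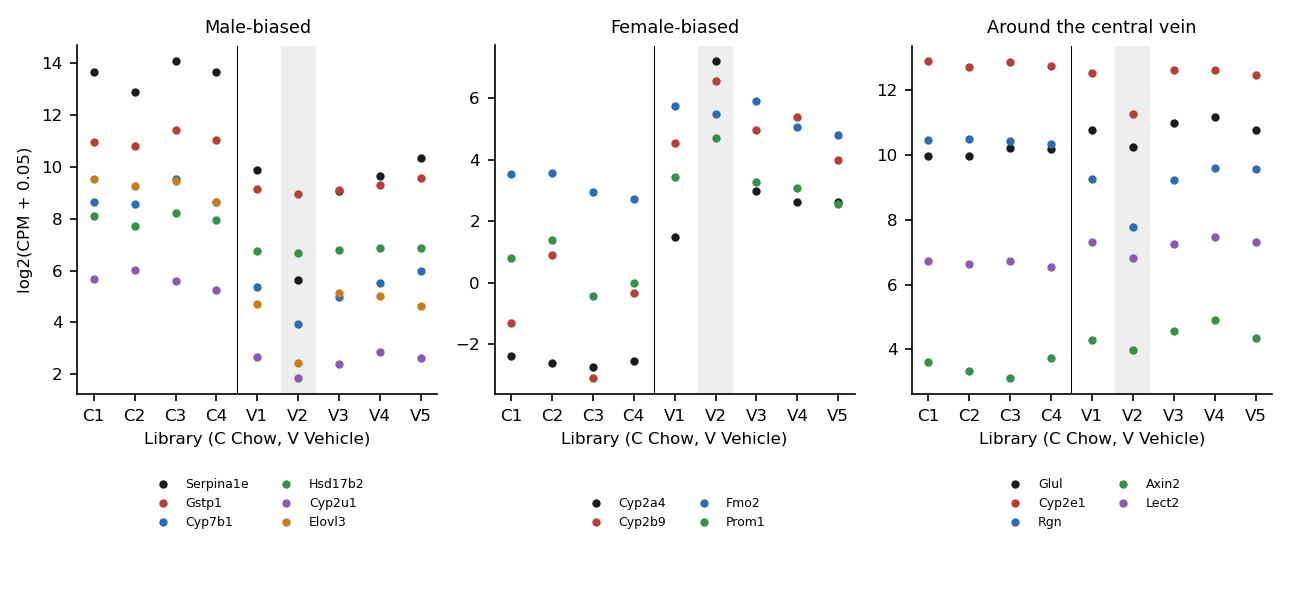
Level in each library, as log2 of CPM plus 0.05, of 6 male-biased genes (left), 4 female-biased genes (middle) and 5 genes of hepatocytes around the central vein (right), for 4 Chow (C) and 5 Vehicle (V) livers, with Vehicle replicate 2 shaded. Replicate 2 is lowest of the Vehicle livers in all 6 male-biased genes, highest for Cyp2a4, Cyp2b9 and Prom1, and lowest for Cyp2e1, Rgn, Glul, Axin2 and Lect2.

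Periportal genes mostly fell, and pericentral genes more often rose than fell. Hepatocytes near the portal vein and near the central vein express different enzymes, the latter under Wnt signals from the vein. Of periportal genes 3 of 17 tested members rose and 11 fell (median log2 fold change -1.02), and 4 rose and 9 fell with raw library totals. Cyp2f2, a periportal P450, was at 1434, 1122, 1339 and 1187 CPM in Chow and 303, 192, 174, 269 and 330.3 CPM in Vehicle and was 5.01-fold lower in Vehicle (log2 fold change -2.32 ± 0.27 SE, adjusted p = 4.69e-06). Of Wnt-dependent pericentral genes 9 of 19 tested members rose and 1 fell (median log2 fold change 0.35). Glutamine synthetase (Glul) was at 992, 1004, 1191 and 1165 CPM in Chow and 1729, 1219, 2011, 2276 and 1757 CPM in Vehicle. Each Vehicle liver exceeded each Chow liver, narrowly for Vehicle replicate 2. It was 1.65-fold higher in Vehicle (log2 fold change 0.72 ± 0.16 SE, adjusted p = 0.00139). Axin2, a general Wnt target, was 1.99-fold higher, Lect2 1.5-fold higher and the ammonium transporter Rhbg 5.07-fold higher. Rgn was 2.32-fold lower, and Cyp2e1 was not called (log2 fold change -0.41 ± 0.20 SE, adjusted p = 0.0981), at 7546, 6619, 7425 and 6819.6 CPM in Chow and 5921, 2466, 6294, 6319.7 and 5652 CPM in Vehicle, with Vehicle replicate 2 far below the rest and no overlap between the groups.

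Most transcription factors of hepatocytes fell by small amounts. Among them 3 of 28 tested members rose and 17 fell (median log2 fold change -0.54), and 4 rose and 4 fell with raw library totals. Hnf4a, the master factor of hepatocyte identity, was at 772, 845, 699 and 576 CPM in Chow and 526, 396, 479, 563 and 482 CPM in Vehicle and was 1.48-fold lower in Vehicle (log2 fold change -0.56 ± 0.12 SE, adjusted p = 0.000728), a call lost with raw totals (log2 fold change -0.087, adjusted p = 0.497). Cebpa, Nr5a2 and the drug receptor Nr1i2 were 1.72-fold, 1.53-fold and 1.56-fold lower, of which the last 2 lost their calls with raw totals (adjusted p = 0.29 and 0.109). Tox3 was at 1.35, 1.48, 1.43, 1.07 and 0.406 CPM in Vehicle and at 0.0351, 0.115, 0.0662 and 0.0412 CPM, near the floor, in Chow. Among clock genes 1 of 20 tested members rose and 12 fell (median log2 fold change -0.63), and 3 rose and 4 fell with raw library totals. Hlf, an output factor of the clock, was 2.27-fold lower, Cry1 2.2-fold lower, Clock 1.5-fold lower and Nr1d1 (REV-ERB alpha) 1.7-fold lower. Nr1d1 was at 138, 129, 166 and 109.7 CPM in Chow and 72.7, 91.4, 58.2, 82.6 and 94.2 CPM in Vehicle, with no overlap. Bhlhe40 fell 1.68-fold with overlapping libraries (log2 fold change -0.75 ± 0.28 SE, adjusted p = 0.0357), a call lost without Chow replicate 3 or 4 and without Vehicle replicate 1, 2, 3 or 5, each in turn. It was not called against Vehicle replicates 4 and 5 only (log2 fold change -0.42, adjusted p = 0.426), nor with raw totals (-0.28), with no filter on low counts, with 9 libraries or with the replicate block. Clock genes oscillate over the day, and the time of collection is not given.

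Mitochondrially encoded genes fell, and nuclear respiratory genes fell by amounts that depended on the scaling. All 13 tested mitochondrially encoded mRNAs fell (median log2 fold change -1.02), and 0 rose and 11 fell with raw library totals. Cytochrome oxidase subunit 1 (mt-Co1) was at 27758, 27071, 31571 and 27706 CPM in Chow and 14749, 16008, 14815, 16492 and 17343 CPM in Vehicle, with no overlap, and was 1.8-fold lower in Vehicle (log2 fold change -0.84 ± 0.11 SE, adjusted p = 1.18e-05). Cytochrome b (mt-Cytb) was 2.03-fold lower, mt-Nd2 1.89-fold and mt-Nd6, the gene on the other strand, 1.84-fold lower. They held 4.27% ± 0.308 (SD, n = 5) of counts in Vehicle and 5.63% ± 0.435 (SD, n = 4) in Chow (exact two-sided permutation test, p = 0.0159, adjusted p = 0.0238). For nuclear subunits the medians were nearer to 0. Of complex I genes 0 of 36 tested members rose and 33 fell (median log2 fold change -0.51), but 4 rose and 6 fell with raw library totals. Of complexes II to IV 0 of 25 tested members rose and 24 fell (median log2 fold change -0.53), but 1 rose and 1 fell with raw library totals. Of ATP synthase subunits 1 of 16 tested members rose and 15 fell (median log2 fold change -0.52), but 2 rose and 0 fell with raw library totals. Ndufb3, an accessory subunit of complex I, was at 53.1, 52.7, 53.5 and 48.9 CPM in Chow and 30.5, 25.7, 27.4, 31.6 and 32 CPM in Vehicle and was 1.77-fold lower in Vehicle (log2 fold change -0.82 ± 0.095 SE, adjusted p = 2.75e-06). The catalytic subunit of complex II, Sdha, was 1.7-fold lower. Atp5b was 1.34-fold lower, and its log2 fold change was 0.058 with raw totals. In the tricarboxylic acid cycle 2 of 19 tested members rose and 13 fell (median log2 fold change -0.42), with a median of 0.06 with raw totals. Idh2, the mitochondrial NADP-linked dehydrogenase, was at 125.7, 125, 106 and 113 CPM in Chow and 209, 236, 244, 280.2 and 258 CPM in Vehicle and was 2.09-fold higher in Vehicle (log2 fold change 1.06 ± 0.093 SE, adjusted p = 1.79e-07).

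Few cytosolic ribosomal genes were called, while most proteasome genes were. Of 40 tested cytosolic ribosomal protein genes 1 rose (Rplp2, 1.2-fold with overlap, a call lost without Chow replicate 2, 3 or 4, without Vehicle replicate 1 or 3, with the replicate block, and against Vehicle replicates 4 and 5 only, where the adjusted p was 0.422) and 1 fell (Rps2, 1.27-fold), but with raw totals 38 rose and 0 fell, and Rps2 had a log2 fold change of 0.13. As a share of raw counts they held 1.1% ± 0.113 (SD, n = 5) of counts in Vehicle and 0.777% ± 0.0373 (SD, n = 4) in Chow (exact two-sided permutation test, p = 0.0159, adjusted p = 0.0238). Of proteasome genes 1 of 31 tested members rose and 29 fell (median log2 fold change -0.41), but the median was 0.071 with raw totals. Psmb7 and Psmd2 were 1.6-fold and 1.48-fold lower, and Psmd8 1.34-fold higher. Among mitochondrial ribosomal proteins 0 of 25 tested members rose and 20 fell (median log2 fold change -0.31), while 14 rose and 1 fell with raw library totals. Of heat shock genes 2 of 20 tested members rose and 13 fell (median log2 fold change -0.45), with a median of 0.03 with raw totals. Hsph1, a nucleotide exchange factor for Hsp70, was at 70.2, 144, 107 and 60.9 CPM in Chow and 26.8, 34.2, 21.4, 31.5 and 27.3 CPM in Vehicle, highest in Chow replicate 2, and was 3.38-fold lower in Vehicle (log2 fold change -1.76 ± 0.21 SE, adjusted p = 6.88e-06). Cryab, a small heat shock protein of mesenchymal cells and muscle, was 2.97-fold higher.

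Iron and haem genes went both ways. Hepcidin (Hamp), the hormone that blocks iron export, was at 1114, 989.7, 938 and 775 CPM in Chow and 511, 639, 297, 353 and 419.6 CPM in Vehicle and was 2.15-fold lower in Vehicle (log2 fold change -1.10 ± 0.20 SE, adjusted p = 0.000265). Of iron handling genes 2 of 17 tested members rose and 8 fell (median log2 fold change -0.31), with a median of 0.17 with raw totals. Tfr2 and Tmprss6, which set hepcidin, were 2.31-fold and 1.75-fold lower, and the ferritin heavy chain Fth1 was 1.45-fold higher. In haem synthesis and breakdown 3 of 14 tested members rose and 8 fell (median log2 fold change -0.37), with a median of 0.10 with raw totals. Haem oxygenase (Hmox1) was at 15.3, 18.9, 12.5 and 20 CPM in Chow and 79, 77.4, 66.4, 55.1 and 63.1 CPM in Vehicle and was 4.09-fold higher in Vehicle (log2 fold change 2.03 ± 0.14 SE, adjusted p = 1.23e-08). The synthesis enzymes Cpox and Urod were 1.82-fold and 1.57-fold lower, and Alas1, the first step, was not called (log2 fold change -0.59 ± 0.51 SE, adjusted p = 0.357). Among NRF2 targets, the antioxidant set, 13 of 28 tested members rose and 8 fell (median log2 fold change 0.15), and 21 rose and 3 fell with raw library totals. Srxn1, which repairs peroxiredoxins, was at 56.6, 54.5, 50.1 and 55.1 CPM in Chow and 156, 170.2, 152, 163 and 214 CPM in Vehicle and was 3.16-fold higher in Vehicle (log2 fold change 1.66 ± 0.11 SE, adjusted p = 8.78e-09). Of selenoproteins and selenium handling genes 6 of 20 tested members rose and 8 fell (median log2 fold change -0.12), with a median of 0.36 with raw totals. Plasma glutathione peroxidase (Gpx3) was 14.4-fold higher, Selenop was not called (log2 fold change -0.065 ± 0.094 SE, adjusted p = 0.579, and 0.42 with raw totals), and Selenbp2 had a log2 fold change of -2.95 that became -3.59 without Vehicle replicate 5.

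Macrophage genes showed the largest rises. Of lipid-associated macrophage markers, the genes of macrophages that take up dying fatty cells, 14 of 16 tested members rose and 0 fell (median log2 fold change 4.64). Gpnmb (ENSMUSG00000029816.11), a membrane glycoprotein of the lysosome, was at 0.14, 0.172, 0.0993 and 0.165 CPM in Chow and 605, 697, 769, 456 and 476 CPM in Vehicle. Each Chow liver held only 3 to 6 counts, and Vehicle replicates 4 and 5 were the lowest of their group. It was 4079-fold higher in Vehicle (log2 fold change 11.99 ± 0.31 SE, adjusted p = 6.11e-13). Trem2, the receptor that senses lipid debris, was at 1.09, 0.487, 1.66 and 0.618 CPM in Chow and 85.7, 73.9, 75.2, 58.5 and 63.9 CPM in Vehicle and was 74.1-fold higher in Vehicle (log2 fold change 6.21 ± 0.27 SE, adjusted p = 4.78e-10). The macrophage elastase Mmp12 was at 0.211, 0.515, 0.43 and 0.247 CPM in Chow and 306, 292, 373, 241 and 295 CPM in Vehicle and was 826-fold higher in Vehicle (log2 fold change 9.69 ± 0.24 SE, adjusted p = 3.17e-13). Lgals3, a galectin, was 49.9-fold higher, Clec7a, a receptor for fungal glucan, 30.5-fold higher, and Capg, an actin capping protein, 22.3-fold higher. Spp1, or osteopontin, was at 58.9, 59.7, 50.2 and 34.1 CPM in Chow and 674, 773, 857, 518 and 362 CPM in Vehicle and was 12.5-fold higher in Vehicle (log2 fold change 3.65 ± 0.34 SE, adjusted p = 6.53e-07), and bile duct cells express it too. The list held 0.334% ± 0.0713 (SD, n = 5) of counts in Vehicle and 0.0177% ± 0.00128 (SD, n = 4) in Chow (exact two-sided permutation test, p = 0.0159, adjusted p = 0.0238).

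The resident macrophages gave a mixed picture. Of Kupffer cell markers 2 of 15 tested members rose and 4 fell (median log2 fold change -0.52), against 29.8% and 25.4% of all tested genes. The share that fell was thus near that over all genes. Cd163, the haemoglobin scavenger receptor, was at 6.17, 10.5, 17.7 and 23.8 CPM in Chow and 0.342, 0.353, 0.497, 0.283 and 0.577 CPM in Vehicle and was 35.1-fold lower in Vehicle (log2 fold change -5.13 ± 0.46 SE, adjusted p = 3.58e-07). Timd4, which binds phosphatidylserine, was at 2.63, 4.55, 5.89 and 11.4 CPM in Chow and 0.639, 1.58, 0.642, 0.202 and 0.299 CPM in Vehicle and was 9.14-fold lower in Vehicle (log2 fold change -3.19 ± 0.52 SE, adjusted p = 9.86e-05). Clec4f, a lectin particular to mouse Kupffer cells, was at 55.5, 75.2, 87.3 and 171 CPM in Chow and 73.1, 79.1, 56.6, 45.7 and 84.5 CPM in Vehicle, with overlap, and was not called (log2 fold change -0.52 ± 0.40 SE, adjusted p = 0.299). Chow replicate 4 had the highest Chow level of all 3, and the median of the list was -0.096 without that liver and -0.048 with raw totals. The iron exporter Slc40a1 was not called (log2 fold change -0.013 ± 0.18 SE, adjusted p = 0.958, and 0.47 with raw totals). Nr1h3 (LXR alpha) was 1.44-fold lower and Il18bp, the interleukin-18 antagonist, 2.5-fold higher. C6 was 2.4-fold lower, although hepatocytes make this complement component as well and it is also a male-biased gene.

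Most lysosomal genes rose. Of lysosomal hydrolases and membrane proteins 19 of 28 tested members rose and 3 fell (median log2 fold change 0.58). Cd63, a membrane tetraspanin, was at 6, 6.01, 4.1 and 4.29 CPM in Chow and 141, 232, 149, 99.1 and 99 CPM in Vehicle and was 28.1-fold higher in Vehicle (log2 fold change 4.81 ± 0.29 SE, adjusted p = 1.12e-08). Psap, the precursor of sphingolipid activators, was at 631, 672, 536 and 641 CPM in Chow and 1728, 1878, 1752, 1517 and 1547 CPM in Vehicle, among the 10 largest gains in CPM, and was 2.72-fold higher in Vehicle (log2 fold change 1.44 ± 0.11 SE, adjusted p = 2.91e-08). The cathepsins Ctsd, Ctsb and Ctsl were 3.5-fold, 2.17-fold and 1.88-fold higher and Hexa 3.34-fold higher. Cd68, the macrophage form of a lysosomal glycoprotein, was 12.3-fold higher. The list held 1.01% ± 0.0861 (SD, n = 5) of counts in Vehicle and 0.441% ± 0.0177 (SD, n = 4) in Chow (exact two-sided permutation test, p = 0.0159, adjusted p = 0.0238). Of vacuolar ATPase subunits, which acidify the lysosome, 10 of 17 tested members rose and 2 fell (median log2 fold change 0.22). Atp6v0d2, the subunit form of macrophages and osteoclasts, was at 2.67, 1.09, 0.497 and 1.11 CPM in Chow and 44.7, 48.5, 50.6, 33.1 and 34.2 CPM in Vehicle and was 31.6-fold higher in Vehicle (log2 fold change 4.98 ± 0.32 SE, adjusted p = 1.92e-08), while the common subunits Atp6v1b2 and Atp6v1e1 were 2.03-fold and 1.28-fold higher.

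Markers of monocytes, dendritic cells and neutrophils rose. Of monocyte markers 10 of 12 tested members rose and 1 fell (median log2 fold change 2.92), of dendritic cell markers 10 of 14 tested members rose and 0 fell (median log2 fold change 1.80), and of neutrophil markers 10 of 14 tested members rose and 0 fell (median log2 fold change 2.89). The neutrophil median moved with single livers: it was 1.86 without Vehicle replicate 2 and 4.15 without Chow replicate 4, and against Vehicle replicates 4 and 5 only it was 1.42 with 4 members called. The groups of libraries did not overlap for 4 of the 14, against 45.4% of all tested genes. Lyz2, the lysozyme of myeloid cells, was at 36.1, 55.2, 71.3 and 126.3 CPM in Chow and 1442, 827, 1139.8, 847 and 919.6 CPM in Vehicle and was 14.3-fold higher in Vehicle (log2 fold change 3.84 ± 0.33 SE, adjusted p = 3.05e-07). Ccr2, which guides monocytes out of marrow, was at 1.12, 1.92, 1.62 and 3.09 CPM in Chow and 21.1, 20.8, 19.3, 13.6 and 17.8 CPM in Vehicle and was 9.64-fold higher in Vehicle (log2 fold change 3.27 ± 0.24 SE, adjusted p = 4.22e-08). Itgam and Cx3cr1 were 15.5-fold and 22.8-fold higher. Fn1, on the monocyte list but made in bulk by hepatocytes, was 1.61-fold lower. Irf8 and Flt3, genes of dendritic cells, were 4.37-fold and 8.43-fold higher. S100a8, a calcium-binding protein of neutrophils, was at 0.491, 0.487, 0.563 and 2.27 CPM in Chow and 7.03, 23.7, 2.24, 1.6 and 2.65 CPM in Vehicle, with overlap, and rested on single livers: its log2 fold change was 3.01, 1.86 without Vehicle replicate 2 and 3.85 without Chow replicate 4, and it was not called against Vehicle replicates 4 and 5 only. Csf3r, the receptor for neutrophil growth factor, was 4-fold higher, with a log2 fold change of 2.0 that became 2.75 without Chow replicate 4.

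T cell and killer cell markers rose from low levels, and B cell markers did not move together. Of T cell markers 17 of 19 tested members rose and 0 fell (median log2 fold change 2.14), and of natural killer and cytotoxic cell markers 10 of 13 tested members rose and 0 fell (median log2 fold change 2.25). The tested members summed to 12.3 CPM (T cell) and 3.19 CPM (killer cell) in Chow. A gene so scarce in Chow passes the filter only where it is higher in other livers, so that these counts partly follow from the filter. The same holds for other lists of genes scarce in Chow. Cd8a, the coreceptor of cytotoxic T cells, was at 0.105, 0.0573, 0.166 and 0.124 CPM in Chow and 2.33, 2.09, 2.71, 5.53 and 4.27 CPM in Vehicle, highest in Vehicle replicates 4 and 5, and was 29.8-fold higher in Vehicle (log2 fold change 4.90 ± 0.54 SE, adjusted p = 1.99e-06). The Chow levels of Cd8a lay near the floor of 3 counts, so that the size of its fold is uncertain. Cd4, which macrophages also express at low level, was not called (log2 fold change -0.59 ± 0.32 SE, adjusted p = 0.128). Lck, the T cell kinase, was 5.5-fold higher, and Prf1 and Ncr1, of killer cells, 4.77-fold and 8.18-fold higher. Of B and plasma cell markers 2 of 13 tested members rose and 3 fell (median log2 fold change -0.13), with a median of 0.34 with raw totals. Over all tested genes 29.8% rose and 25.4% fell. The members that fell, Derl3, Xbp1 and Sdc1, are also expressed by hepatocytes. Cd22, of B cells and some myeloid cells, was 4.15-fold higher. Only 2 of 10 mast cell and basophil markers were tested and neither was called.

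Chemokine and cytokine genes rose far more often than they fell. Of chemokines 19 of 27 tested members rose and 2 fell (median log2 fold change 2.72), and of chemokine receptors 12 of 18 tested members rose and 0 fell (median log2 fold change 1.85). Cxcl16, a membrane-bound chemokine, was at 6.56, 7.04, 7.61 and 7.09 CPM in Chow and 43.3, 36.7, 35.2, 28.8 and 31.2 CPM in Vehicle and was 4.95-fold higher in Vehicle (log2 fold change 2.31 ± 0.14 SE, adjusted p = 2.97e-09). Cx3cl1, or fractalkine, was 16.7-fold higher. Ccl22, made by dendritic cells and macrophages, was at 3.81, 2.75, 4.16, 3.08 and 3.01 CPM in Vehicle and at or below 2 counts in each Chow liver. Cxcl12, of stellate and endothelial cells, was not called (log2 fold change -0.14 ± 0.13 SE, adjusted p = 0.371, and 0.34 with raw totals). The receptor Cxcr4 was 17.4-fold higher. Ccr1 had a log2 fold change of 4.62 that became 5.22 without Chow replicate 4. Of interleukins and their receptors 23 of 34 tested members rose and 4 fell (median log2 fold change 1.43). Il7r was 25.1-fold higher. Lifr, the receptor for leukaemia inhibitory factor on hepatocytes, was at 403, 301, 1063 and 624 CPM in Chow and 87.3, 82.5, 97.9, 86.3 and 157 CPM in Vehicle and was 5.85-fold lower in Vehicle (log2 fold change -2.55 ± 0.31 SE, adjusted p = 9.77e-06), while its ligand Lif was at 2.17, 3.27, 2.55, 1.6 and 2.95 CPM in Vehicle against 0 to 0.132 CPM in Chow. Of the TNF superfamily 21 of 26 tested members rose and 0 fell (median log2 fold change 1.77). Tnf itself was at 0.105, 0.229, 0.166 and 0.289 CPM in Chow and 2.87, 1.98, 2.79, 1.78 and 3.5 CPM in Vehicle and was 13-fold higher in Vehicle (log2 fold change 3.70 ± 0.32 SE, adjusted p = 1.62e-07), and Tnfrsf12a, the TWEAK receptor, was 4.7-fold higher.

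Innate sensing and antigen presentation rose. Of Toll-like receptor and inflammasome genes 24 of 29 tested members rose and 3 fell (median log2 fold change 1.30). Cd14, the endotoxin coreceptor, was at 1.19, 2.03, 2.05 and 2.56 CPM in Chow and 45.1, 34.7, 32.1, 25.2 and 33.8 CPM in Vehicle and was 17.5-fold higher in Vehicle (log2 fold change 4.13 ± 0.20 SE, adjusted p = 6.29e-10). Tlr13 was 16.8-fold higher, and Nlrp6, an inflammasome sensor of hepatocytes and gut, was 2.37-fold lower. Of interferon-stimulated genes 22 of 33 tested members rose and 0 fell (median log2 fold change 1.28), with a median of 1.68 against Vehicle replicates 4 and 5 only and 0.90 against replicates 1, 2 and 3 only. Oas1a, an antiviral synthetase, was at 1.79, 2.49, 3.38 and 3.34 CPM in Chow and 17.5, 14.5, 15, 20.2 and 25.9 CPM in Vehicle and was 6.79-fold higher in Vehicle (log2 fold change 2.76 ± 0.24 SE, adjusted p = 2.5e-07). Of MHC class II presentation genes 13 of 14 tested members rose and 0 fell (median log2 fold change 2.27). The invariant chain Cd74 was at 33.1, 48.5, 42.6 and 81.3 CPM in Chow and 288, 295, 208, 217 and 213 CPM in Vehicle and was 4.75-fold higher in Vehicle (log2 fold change 2.25 ± 0.31 SE, adjusted p = 3.14e-05), and the protease Ctss that trims it was 14.5-fold higher. Of MHC class I and immunoproteasome genes 10 of 19 tested members rose and 3 fell (median log2 fold change 0.45). H2-D1 was 1.85-fold higher, Cd1d1, which presents lipids, was 1.79-fold lower, and B2m and H2-K1 were not called (log2 fold change -0.075 ± 0.13 SE, adjusted p = 0.638 for B2m and log2 fold change -0.035 ± 0.14 SE, adjusted p = 0.849 for H2-K1), with log2 fold changes of 0.40 and 0.44 with raw totals.

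Sinusoidal endothelial markers were called at shares near those over all tested genes, and vascular markers rose. Of sinusoidal endothelial markers 6 of 20 tested members rose and 6 fell (median log2 fold change -0.026), with a median of 0.46 with raw totals. Over all tested genes 29.8% rose and 25.4% fell. Ehd3, an endocytic protein of these cells, was at 85.2, 68.5, 78.2 and 88.6 CPM in Chow and 42.3, 35.8, 42.7, 42 and 34.4 CPM in Vehicle and was 2.03-fold lower in Vehicle (log2 fold change -1.02 ± 0.091 SE, adjusted p = 2.02e-07), and the factor Gata4 was 1.71-fold lower. The scavenger receptor Stab1 was 1.84-fold higher and its relative Stab2 was not called (log2 fold change -0.10 ± 0.11 SE, adjusted p = 0.438, and 0.38 with raw totals). Of vascular and capillarised endothelial markers 11 of 18 tested members rose and 0 fell (median log2 fold change 1.0), with a median of 0.48 against Vehicle replicates 4 and 5 only and 1.45 against the other 3. Vcam1, an adhesion molecule, was at 5.33, 6.9, 6.39 and 10.6 CPM in Chow and 58.8, 73.6, 52.1, 44.5 and 52.8 CPM in Vehicle and was 7.76-fold higher in Vehicle (log2 fold change 2.96 ± 0.19 SE, adjusted p = 1.07e-08). Cd34 was at 2.03, 1.83, 1.19 and 3.01 CPM in Chow and 17.5, 16.6, 19.2, 11.2 and 8.05 CPM in Vehicle and was 7.26-fold higher in Vehicle (log2 fold change 2.86 ± 0.38 SE, adjusted p = 1.98e-05). Plvap was called 1.42-fold higher with overlapping libraries, and lost that call without Chow replicate 1 or 3, without Vehicle replicate 4 or 5 and against Vehicle replicates 1, 2 and 3 only.

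Stellate cell genes of the quiescent list mostly rose too. There 11 of 18 tested members rose and 4 fell (median log2 fold change 0.64). Cygb, the stellate cell globin, was at 10.1, 10.6, 7.18 and 7.38 CPM in Chow and 69.4, 68.7, 65.9, 45.9 and 41.1 CPM in Vehicle and was 6.59-fold higher in Vehicle (log2 fold change 2.72 ± 0.29 SE, adjusted p = 2.84e-06), and Tcf21 was 5.17-fold higher. Ecm1 fell 1.49-fold with overlap (log2 fold change -0.57 ± 0.13 SE, adjusted p = 0.00127), a call lost against Vehicle replicates 4 and 5 only. Of myofibroblast markers 15 of 17 tested members rose and 0 fell (median log2 fold change 1.98). Acta2, an actin of smooth muscle and of activated stellate cells, was at 1.16, 1.95, 1.32 and 1.9 CPM in Chow and 10.5, 4.68, 5.73, 4.64 and 5.79 CPM in Vehicle and was 3.95-fold higher in Vehicle (log2 fold change 1.98 ± 0.30 SE, adjusted p = 3.66e-05). Timp1, an inhibitor of matrix metalloproteases, was at 0.14, 0.172, 0.0662 and 0.124 CPM in Chow and 9.67, 7.08, 6.87, 6.52 and 6.96 CPM in Vehicle and was 57.1-fold higher in Vehicle (log2 fold change 5.84 ± 0.34 SE, adjusted p = 2.92e-09). Its Chow levels lay near the floor of 3 counts, so that the size of this fold is uncertain. Lox, which crosslinks collagen, was 19.4-fold higher. Of portal fibroblast and mesothelial markers 13 of 18 tested members rose and 0 fell (median log2 fold change 2.32). Dpt was 11.9-fold higher, elastin (Eln) 9.39-fold higher and the TAM ligand Gas6 3.94-fold higher.

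Most matrix genes rose. Of fibrillar collagens and their processing genes 16 of 23 tested members rose and 6 fell (median log2 fold change 1.99). Col1a1 (ENSMUSG00000001506.11) was at 13.7, 10.8, 6.59 and 5.73 CPM in Chow and 182, 199.5, 149, 183 and 149 CPM in Vehicle and was 18.7-fold higher in Vehicle (log2 fold change 4.23 ± 0.32 SE, adjusted p = 1.19e-07). Col3a1 was 11.1-fold and Col5a2 11.1-fold higher, and Bmp1, the procollagen protease, 1.69-fold lower. Of basement membrane genes 18 of 23 tested members rose and 3 fell (median log2 fold change 1.62). Col4a1 was at 40.6, 34.6, 33.7 and 37.3 CPM in Chow and 152, 167, 136, 135 and 115 CPM in Vehicle and was 3.86-fold higher in Vehicle (log2 fold change 1.95 ± 0.15 SE, adjusted p = 3.49e-08), whereas Col18a1, whose long form hepatocytes make, was at 1311, 1337, 1173 and 1273 CPM in Chow and 860.2, 609, 751, 927 and 874 CPM in Vehicle and was 1.58-fold lower in Vehicle (log2 fold change -0.66 ± 0.11 SE, adjusted p = 0.000134). Nid1 was 4.72-fold higher, with Vehicle replicate 2 highest. Of proteoglycans and glycoproteins 22 of 25 tested members rose and 2 fell (median log2 fold change 2.02), among them lumican (Lum, 15.6-fold), thrombospondin 1 (Thbs1, 35.6-fold), tenascin C (Tnc, 9.18-fold) and fibrillin 1 (Fbn1, 7.23-fold). Of matrix proteases and inhibitors 22 of 26 tested members rose and 2 fell (median log2 fold change 3.02). Adam8, a leukocyte sheddase, was at 0.632, 0.716, 0.397 and 0.824 CPM in Chow and 37.6, 29.8, 38.2, 41.6 and 41.9 CPM in Vehicle and was 59-fold higher in Vehicle (log2 fold change 5.88 ± 0.20 SE, adjusted p = 1.15e-11), and urokinase (Plau) was 11.1-fold higher. Fibrillar collagen genes together held 0.138% ± 0.0156 (SD, n = 5) of counts in Vehicle and 0.0496% ± 0.00637 (SD, n = 4) in Chow (exact two-sided permutation test, p = 0.0159, adjusted p = 0.0238).

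Adhesion and cytoskeleton genes rose in the same livers. Of integrins 20 of 24 tested members rose and 1 fell (median log2 fold change 1.56). Itgax, the CD11c chain, was at 0.632, 1.06, 1.09 and 2.14 CPM in Chow and 71.4, 70.1, 69.2, 58.7 and 60.1 CPM in Vehicle and was 54.6-fold higher in Vehicle (log2 fold change 5.77 ± 0.26 SE, adjusted p = 5.18e-10), and Itgb2, its partner, 12.4-fold higher. Itgb1, the common chain, was not called (log2 fold change 0.17 ± 0.077 SE, adjusted p = 0.0774), but was called higher without Vehicle replicate 4, without replicates 4 and 5, with a minimum of 1 CPM in 4 libraries, with DESeq2, with limma-voom and with raw totals (0.65). Of actin, tubulin and keratin genes 23 of 26 tested members rose and 0 fell (median log2 fold change 1.29). Flna, an actin crosslinker, was at 29.2, 35.2, 35.2 and 37.1 CPM in Chow and 176, 198, 187, 190.2 and 157 CPM in Vehicle and was 5.32-fold higher in Vehicle (log2 fold change 2.41 ± 0.13 SE, adjusted p = 1.73e-09). Thymosin beta 4 (Tmsb4x) was 4.95-fold higher and keratin 8 (Krt8) of epithelial cells 1.97-fold higher. Actb, often used as a reference gene, was called at a higher level, by 1.23-fold (log2 fold change 0.29 ± 0.098 SE, adjusted p = 0.0185), a call lost without Chow replicate 2 and against the Vehicle livers with many receptor genes.

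Bile duct and fetal genes rose. Of cholangiocyte and ductular markers 18 of 19 tested members rose and 1 fell (median log2 fold change 3.10). Cldn4, a tight junction protein, was at 0.421, 0.229, 0.298 and 0.247 CPM in Chow and 6.78, 10.3, 10.1, 4.47 and 3.31 CPM in Vehicle and was 23.2-fold higher in Vehicle (log2 fold change 4.54 ± 0.45 SE, adjusted p = 7.84e-07). Cldn7 was 15.2-fold and the mucin Muc1 7.13-fold higher. Of fetal and tumour-associated liver genes 19 of 24 tested members rose and 0 fell (median log2 fold change 2.35). Ly6d was at 0.667, 0.973, 0.695 and 1.65 CPM in Chow and 65, 172, 58.5, 55.3 and 93.1 CPM in Vehicle, with Vehicle replicate 2 highest, and was 90.7-fold higher in Vehicle (log2 fold change 6.50 ± 0.49 SE, adjusted p = 1.93e-07). Golm1, a Golgi protein raised in diseased hepatocytes, was 4.42-fold higher.

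**Figure D5:**
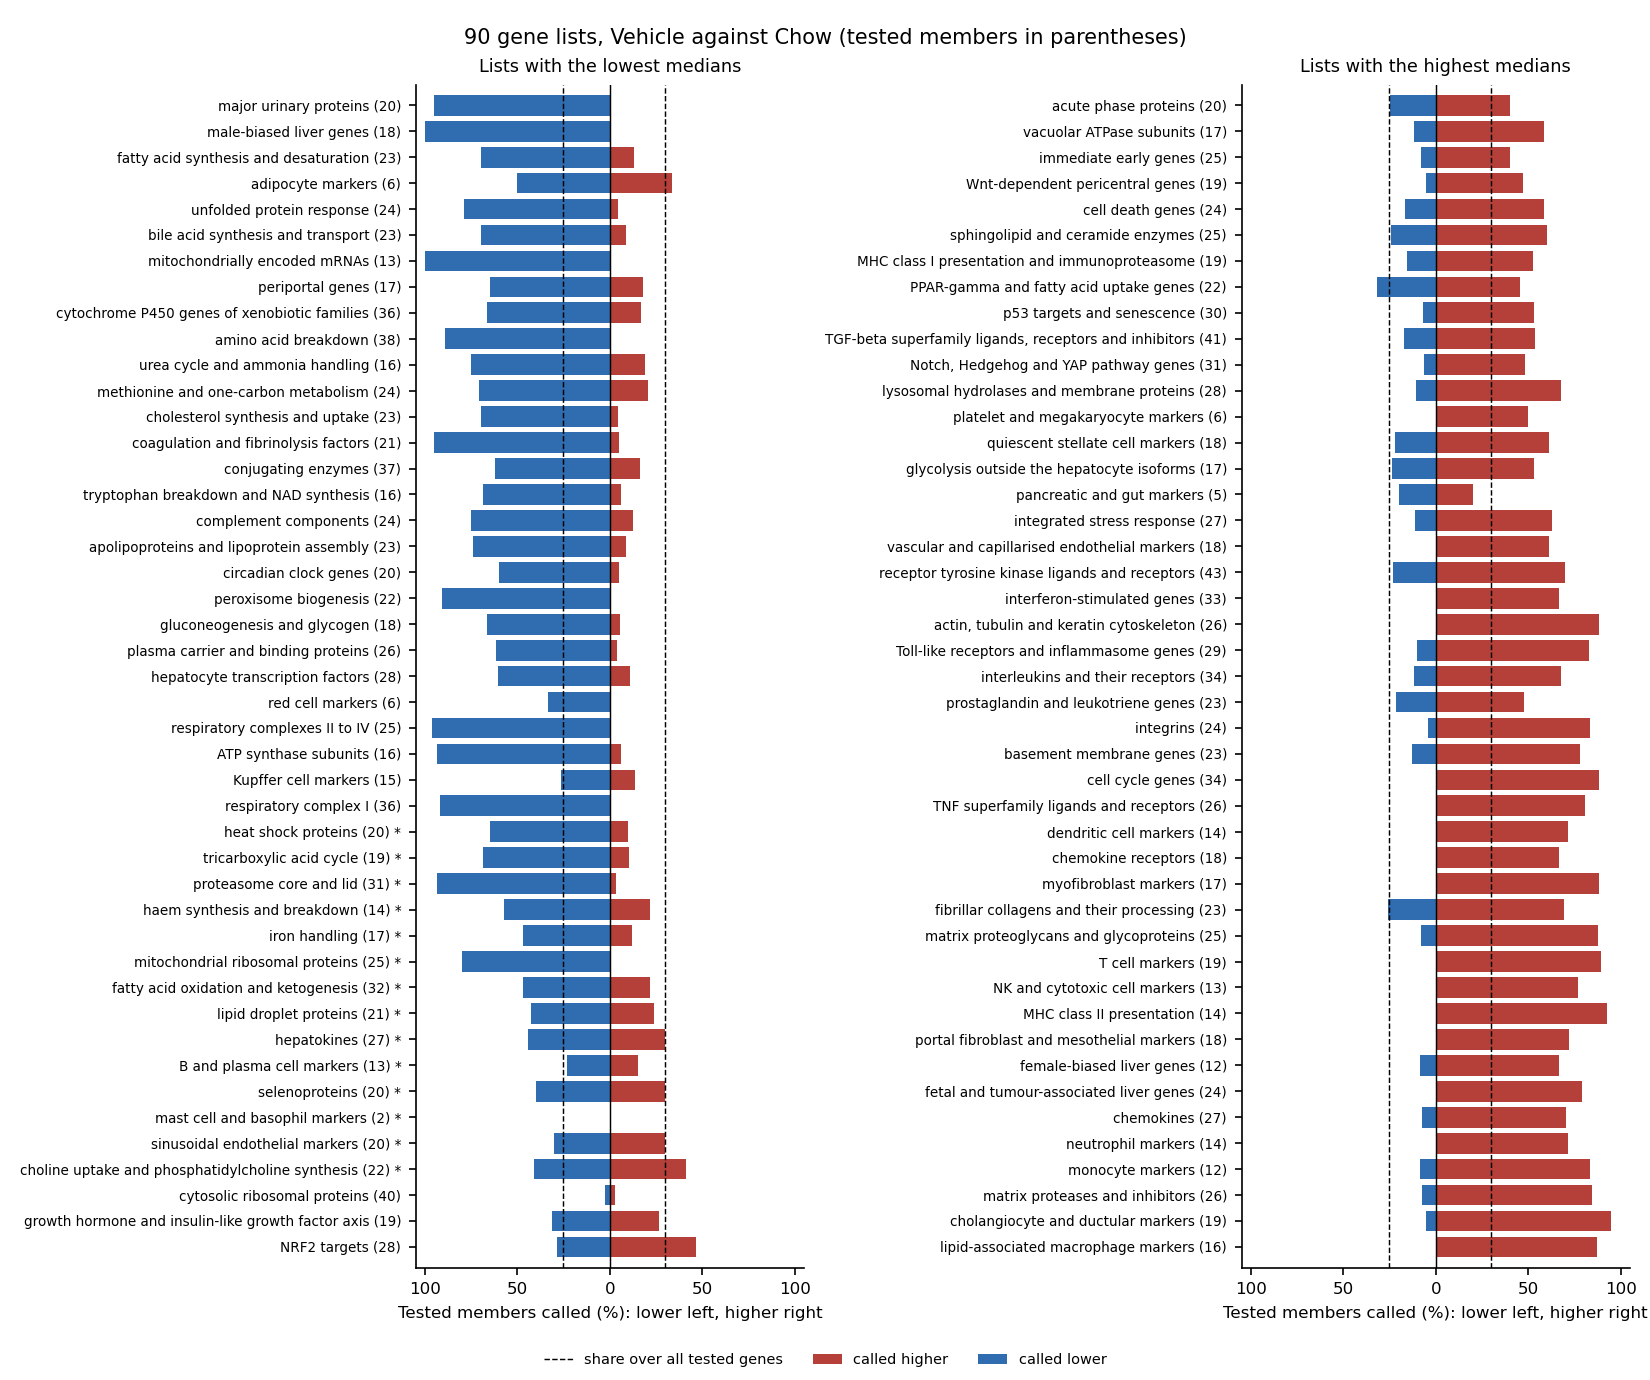
Share of tested members called lower (blue, left) and higher (red, right) in each of 90 gene lists, ordered by median log2 fold change from the lowest (top left) to the highest (bottom right), with the number of tested members in parentheses. Dashed lines mark the shares over all tested genes, 25.4% lower and 29.8% higher, and an asterisk marks the 14 lists whose median changes sign with raw library totals. The lines take no account of level, and 64.3% of genes between 100 and 1000 CPM fell with TMM scaling.

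Growth factor genes rose more often than they fell. Of receptor tyrosine kinase ligands and receptors 30 of 43 tested members rose and 10 fell (median log2 fold change 1.22). Nrg1, an ERBB ligand, was at 1.05, 0.802, 0.861 and 1.07 CPM in Chow and 11.5, 16.5, 15.5, 9.09 and 14 CPM in Vehicle and was 14.1-fold higher in Vehicle (log2 fold change 3.82 ± 0.22 SE, adjusted p = 2.18e-09). Pdgfb, the mitogen of stellate cells, was 7.94-fold higher and the receptor Axl 4.77-fold higher. Vegfa was 1.87-fold lower. Egfr was at 983, 359, 1345 and 530.0 CPM in Chow and 302, 215, 341, 167 and 451 CPM in Vehicle, with overlap and a wide spread in Chow, and was called 2.72-fold lower (log2 fold change -1.45 ± 0.44 SE, adjusted p = 0.0136), a call lost without Chow replicate 3 (adjusted p = 0.0582) and against Vehicle replicates 4 and 5 only. Of the TGF-beta superfamily 22 of 41 tested members rose and 7 fell (median log2 fold change 0.53). Tgfb1 was at 5.79, 5.44, 7.38 and 10.3 CPM in Chow and 24.7, 26.8, 23.1, 21.7 and 21.1 CPM in Vehicle and was 3.26-fold higher in Vehicle (log2 fold change 1.70 ± 0.17 SE, adjusted p = 6.29e-07), and Ltbp3, which stores it in matrix, was 6.76-fold higher. Of Notch, Hedgehog and YAP pathway genes 15 of 31 tested members rose and 2 fell (median log2 fold change 0.56). Ankrd1, a YAP target, was 11-fold higher, Wwtr1 (TAZ) 1.76-fold higher and Yap1 1.18-fold lower, the last with a log2 fold change of 0.23 under raw totals and no call against Vehicle replicates 4 and 5 only. Among hepatokines 8 of 27 tested members rose and 12 fell (median log2 fold change -0.29), with a median of 0.19 with raw totals. Gdf2 (BMP9), of stellate cells, was 2.23-fold higher, Hgf 2.91-fold higher, and Ahsg (fetuin A) was not called (log2 fold change 0.04 ± 0.13 SE, adjusted p = 0.809) except with raw totals (log2 fold change 0.53).

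Cell cycle genes rose, and damage genes rose more often than they fell. Of cell cycle genes 30 of 34 tested members rose and 0 fell (median log2 fold change 1.70). Mki67, a marker of dividing cells, was at 2.07, 1.75, 1.19 and 2.47 CPM in Chow and 17.6, 25.6, 27.8, 17.1 and 23.5 CPM in Vehicle and was 12-fold higher in Vehicle (log2 fold change 3.59 ± 0.27 SE, adjusted p = 6.66e-08). Cyclin D1 (Ccnd1) was 5.61-fold higher, the mitotic kinase Cdk1 7.6-fold higher and Pcna 1.52-fold higher. Of p53 targets and senescence genes 16 of 30 tested members rose and 2 fell (median log2 fold change 0.49). Cdkn1a, the inhibitor p21, was at 5.19, 5.81, 3.77 and 6.14 CPM in Chow and 23.6, 44, 28.4, 25.1 and 23.5 CPM in Vehicle, with Vehicle replicate 2 highest, and was 5.53-fold higher in Vehicle (log2 fold change 2.47 ± 0.21 SE, adjusted p = 2.12e-07). Gadd45b was 9.26-fold higher. Of cell death genes 14 of 24 tested members rose and 4 fell (median log2 fold change 0.38), among them Casp12 at 8.6-fold higher. Of immediate early genes 10 of 25 tested members rose and 2 fell (median log2 fold change 0.25), and the median was 0.73 without Chow replicate 3. Klf6 was 6.49-fold higher, while Egr1, which responds within minutes to handling, was not called (log2 fold change -0.53 ± 0.53 SE, adjusted p = 0.415) and ranged from 62.1 to 252 CPM within Vehicle.

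Markers of other tissues were read as a check. No tested gene came from the muscle list, of whose 10 members none passed the filter. The largest total of a member was 6 counts over the Chow livers and 37 over the Vehicle livers. Of 6 tested red cell markers 0 rose and 2 fell, and Hbb-bs, a haemoglobin chain, was not called (log2 fold change -0.42 ± 0.72 SE, adjusted p = 0.646), at 157, 63.4, 79.6 and 85.8 CPM in Chow and 92, 128, 95.1, 21.6 and 24.5 CPM in Vehicle. Vehicle replicates 4 and 5 were the lowest there. Of 6 tested platelet markers 3 rose and 0 fell. Of 6 tested adipocyte markers 2 rose and 3 fell, and 4 further adipocyte markers stayed below the filter. Of 5 tested pancreatic and gut markers 1 rose (Vil1, 10.2-fold, which ductular cells also express) and 1 fell (Cela1, 2.82-fold). A further 9 stayed below the filter. Of them Pnlip (10 counts over Chow and 63 over Vehicle livers), Try4 (4 and 57), Prss2 (10 and 53), Cpa1 (12 and 47) and Cpb1 (3 and 28) had more counts in Vehicle. Prss1 (0 and 1) and Reg1 (0 and 5) held few counts, and Amy2a5 and Reg3b held 0 in both. The part of other tissues in the results above was not tested.

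The spread among livers was compared as a description. Over 10116 protein-coding genes of at least 5 CPM the median SD of log2 CPM was 0.150 in Vehicle and 0.141 in Chow. Genes called at least 2-fold higher spread more in Chow (0.319) than in Vehicle (0.231), and those called at least 2-fold lower spread more in Vehicle (0.304) than in Chow (0.203). In both sets, which were chosen by the call, the wider spread was in the group with the lower level. Counting error widens log2 values more at low levels, so that spread and level cannot be told apart here.

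Simple motifs were counted in the promoters of the most changed genes. Among tested genes with a promoter in the table, TATAAA on either strand was found in 15.4% of 149 genes called at least 4-fold lower, 10.0% of 1557 called at least 4-fold higher and 8.05% of all 12262. The AP-1 letters TGANTCA were found in 8.03% of the higher and 8.72% of the lower genes against 5.65% of all, the ETS letters AGGAAGT in 11.8%, 4.70% and 9.44%, and the HNF1 letters GTTAAT in 4.95%, 8.05% and 4.84%. Promoters of the P450 list held TATAAA in 20 of 32. These shares are descriptions and draw on related genes that share sequence.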

How the data were processed

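RNA was taken from snap-frozen liver pieces with TRIzol and sequenced on a NovaSeq X Plus, per the labels' protocols. The deposited table holds raw whole-number counts per Ensembl gene, 1 column per library. STAR 2.7.11b and the build GRCm39 are listed in the submitters' processing notes. How reads were counted (tool, annotation, strand) is not stated in what was used here, so that overlapping and near-identical genes are uncertain.

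Symbols came from the reference tables (51880 of 57132 identifiers, 99.6% of counts). edgeR 4.0.16 (R 4.3.3) was run on the counts: TMM scaling, filterByExpr by group (18181 genes kept, holding 99.936% of counts), robust quasi-likelihood fit over all 14 libraries, contrast Vehicle minus Chow, Benjamini-Hochberg over all tested genes, threshold 0.05. SE is the size of the log2 fold change over the root of F. Shares of counts were tested by exact two-sided permutation (smallest p 0.0159), adjusted over 18 shares. No 2 libraries differed as little as repeats of 1 library would. P-values measure spread between mice.

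Alternatives were DESeq2 1.42.0, limma-voom (limma 3.58.1), other scalings and filters, each library left out, a replicate block, and Vehicle livers with few or many receptor genes. The script was tested on simulated data of 18181 genes, in which 67, 67 and 66 genes were changed 1.5-fold, 2-fold and 4-fold. It recovered 47.8%, 82.1% and 95.5% of them, and 7.98% of its 163 calls were false. Motifs were searched on both strands of RefSeq promoters (GRCm38.p6, 12262 tested genes), which is not the build of the counts and is used for names and letters only.

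Members and gene lists were chosen with earlier results of these data known, so that the p-values of list shares are no independent support. Genes are named by rule: the 10 largest rises and falls whose higher group averages 100 CPM or more and whose groups do not overlap, the 10 largest gains and losses in CPM, up to 4 called genes of smallest p and the 2 of highest level per list, and Col1a1, Acta2, Timp1, Alb, Hnf4a, Gpnmb, Trem2, Clec4f, Cd163 and Scd1. Asns, Atf3, Canx, Chac1, Dnajc3, Fgf21, Gars, Hsp90b1, Pdia6, Syvn1 and Trib3 were chosen after their values were seen. Some genes that the rule names are not reported here.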

Additional observations from a re-analysis of the deposited data

Results flagged for a closer look

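In 38 of 656 groups of libraries (328 genes named here, 4 Chow or 5 Vehicle livers each), 1 library lay far from the others on log2 of CPM plus 0.05, its gap to the nearest being most of the range (Dixon's 95% critical value). Chance flags about 1 in 20 groups, so that the number in all is no result. Values are given in CPM, and the explanations were not tested. Vehicle replicate 2 was lowest for Abcb11 (337 against 434 to 458), Cyp2e1 (2466 against 5652 to 6319.7), Elovl3 (5.41 against 24.5 to 35.2), Gsta3 (527 against 892 to 1099), Rgn (221 against 593 to 779.5), Serpina1e (49.5 against 531 to 1287), Slc10a1 (114 against 185 to 207), Slc37a4 (49.5 against 71.3 to 79.2) and Thrsp (2.02 against 12.5 to 25.4) and highest for Cyp2a4 (148 against 2.74 to 7.95), Fbp1 (831 against 608 to 661), Gapdh (1254 against 1143 to 1171) and Golm1 (21.5 against 10.4 to 12.6). Vehicle replicate 2 gave 13 of the 38, among them male-biased genes and genes of bile acid import and lipid synthesis. Chow replicate 4 was lowest for Lif (0 against 0.105 to 0.132) and Ndufb3 (48.9 against 52.7 to 53.5) and highest for C3 (12049 against 7723 to 8082), Hp (8665 against 2244 to 2506), Lcn2 (82.2 against 1.96 to 2.92), S100a8 (2.27 against 0.487 to 0.563) and Slc7a11 (0.0824 against 0). Chow replicate 3 was lowest for Cyp2c37 (326 against 362 to 369.6) and Stat5b (89.1 against 104.5 to 107) and highest for Cyp7b1 (739 against 385 to 403), Mup16 (266 against 63.3 to 71.2) and mt-Co1 (31571 against 27071 to 27758). Vehicle replicate 5 was lowest for Cryab (7.37 against 12.1 to 14.5), Ltbp3 (20.3 against 27.5 to 28.8) and Tox3 (0.406 against 1.07 to 1.48) and highest for Abhd5 (24.1 against 20.6 to 21.6), Lifr (157 against 82.5 to 97.9) and mt-Nd2 (5109 against 4512 to 4655). Chow replicate 1 was highest for Ahcy (2045 against 1535 to 1606), Ido2 (146 against 134 to 136) and Serpinc1 (3057 against 2436 to 2527). Chow replicate 2 was lowest for Fgb (4545 against 6233 to 6369) and Klf6 (8.07 against 10.3 to 10.9). Vehicle replicate 1 was highest for Acta2 (10.5 against 4.64 to 5.79) and Timp1 (9.67 against 6.52 to 7.08).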

How the results depend on the processing

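The 10035 calls became 10039 with DESeq2 size factors in edgeR, 10330 with DESeq2, 10288 with limma-voom, 9450 with no filter on low counts, 8875 with a minimum of 1 CPM in 4 libraries and 9352 with Vehicle and Chow libraries alone. Leaving out a library in turn gave 9248 to 9960. Against Vehicle replicates 4 and 5 only there were 7391 calls and against replicates 1, 2 and 3 only 9997. With the replicate number as a block there were 9349 calls, and same-numbered livers had correlations of deviations from -0.122 to 0.168, so that the numbers do not pair the samples. With raw library totals 10389 genes were called higher, 1378 lower and 161 at least 4-fold lower. Medians below 0 that turned with raw totals were those of the lists choline (0.46), fatty acid oxidation (0.19), haem (0.1), iron handling (0.17), selenoproteins (0.36), hepatokines (0.19), mitochondrial ribosomal (0.18), tricarboxylic acid cycle (0.06), lipid droplet (0.19), mast cell (0.4), B and plasma cell (0.34), sinusoidal (0.46), heat shock (0.03) and proteasome (0.071). Genes that turned were Apoe (0.14), Atp5b (0.058), B2m (0.4), Cxcl12 (0.34), H2-K1 (0.44), Mat1a (0.16), Rps2 (0.13), Selenop (0.42), Slc40a1 (0.47), Stab2 (0.38), Trf (0.34) and Yap1 (0.23). The choline median was 0.0064 with no filter, 0.048 with the CPM minimum, 0.0043 with limma-voom, 0.0045 with 9 libraries, 0.015 without Chow replicate 1 and 0.056 without Vehicle replicate 2. The B and plasma cell median was 0.18 with the CPM minimum, 0.085 against replicates 1, 2 and 3 and 0.25 without Chow replicate 4. The adipocyte markers median was 0.64 with the CPM minimum. The sinusoidal median was 0.025 without Chow replicate 1, 0.073 without Vehicle replicate 5, 0.2 against replicates 1, 2 and 3, 0.073 without Chow replicate 4, 0.016 with the replicate block and 0.048 without Vehicle replicate 4. The mast cell median was 0.14 without Chow replicate 3, 0.0058 without Vehicle replicate 5 and 0.11 against replicates 1, 2 and 3. The red cell markers median was 0.0058 against replicates 1, 2 and 3. The cytosolic ribosomal proteins median was -0.057 against replicates 4 and 5. Leaving out a library in turn, the medians ranged from -0.054 to 0.056 for choline, -0.26 to 0.14 for mast cell, -0.27 to 0.25 for B and plasma cell and -0.11 to 0.073 for sinusoidal. Differences in shares, in percentage points, Vehicle minus Chow, ranged likewise: major urinary protein genes -1.62 to -1.34, plasma carrier and binding protein genes -2.1 to -0.864, apolipoprotein and lipoprotein assembly genes -0.237 to 0.0252, complement genes -0.153 to 0.0658, coagulation and fibrinolysis genes -0.57 to -0.425, acute phase genes 0.121 to 0.427, xenobiotic cytochrome P450 genes -0.601 to -0.445, fatty acid synthesis and desaturation genes -1.28 to -1.1, mitochondrially encoded mRNAs -1.53 to -1.18, cytosolic ribosomal protein genes 0.287 to 0.353, fibrillar collagen and processing genes 0.0848 to 0.0942, lipid-associated macrophage markers 0.297 to 0.335, lysosomal genes 0.554 to 0.599, MHC class II presentation genes 0.103 to 0.116, cytoskeleton genes 0.316 to 0.352, conjugating enzyme genes -0.323 to -0.245, 10 most abundant genes of each library -2.04 to -1.18 and 100 most abundant genes of each library -7.43 to -6.26. With 3 Chow libraries the smallest exact p is 0.0357, which adjusted to 0.0536 without Chow replicate 1 or 3, so that no share passed there. The difference turned to 0.0252 for apolipoprotein genes without Chow replicate 1 and to 0.0658 for complement genes without Chow replicate 4. Plasma carrier genes and the 10 most abundant genes passed without Chow replicate 2, and acute phase genes without Chow replicate 4. Coagulation genes kept the call without Chow replicate 2 or Vehicle replicate 1 and lost it without any other library. Of the genes called lower that turned, Yap1 was called higher with raw totals (adjusted p = 0.00979). The causes were not tested. Levels near the floor of 3 counts limit the folds of genes scarce in Chow.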

Other observations

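Some noncoding and low-count genes lie outside the comparisons above. Of 1695 tested long noncoding RNAs 372 rose (21.9%) and 298 fell (17.6%). Neat1, the scaffold of paraspeckles, was at 341, 540.2, 992 and 540.0 CPM in Chow and 844, 822, 1067, 1423 and 1556 CPM in Vehicle and was 1.89-fold higher in Vehicle (log2 fold change 0.92 ± 0.27 SE, adjusted p = 0.00935), a call lost against Vehicle replicates 1, 2 and 3 only. Of 59 tested immune receptor segments 10 rose and 0 fell. Of genes called at least 8-fold higher, 22 reached 100 CPM and 359 stayed under 1 CPM in the higher group, and of those at least 8-fold lower 21 and 10 did.

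Several genes of the lists held almost no counts in any liver, although they are known as abundant in liver or in the cells described. Mt2, a metallothionein, had 1 count in all Chow livers together and 30 in all Vehicle livers, while its neighbour Mt1 was at 5.47, 2, 3.08 and 18.8 CPM in Chow and 218, 116, 111, 28 and 79.5 CPM in Vehicle. Hsd3b7, an enzyme of bile acid synthesis, had 0 counts in both. Tagln, of myofibroblasts, had 14 and 27 counts, and S100a4, of monocytes, 2 and 18. The cause was not tested, and these genes carry no comparison.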
